A study of Mus musculus with 9 samples.

Results

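Mammary tumours grown from the mouse cell line NDL were compared with tumours grown from the line SSM2. The members were the samples whose titles name either line, 3 NDL and 3 SSM2 arrays, 6 of the 9 samples in the series. Cultured cells had been implanted bilaterally, in uncleared mammary fat pads of FVB/NJ females between 6 and 8 weeks old, so host mammary epithelium, fat and stroma were in place. Tumours were cut up and frozen once they had reached 5 to 10 mm in width. As background, the NDL line carries a transgene of activated ErbB2 (neu), and the SSM2 line is known for its oestrogen and progesterone receptors. Each group is tumours of 1 cell line, with no further treatment given, so the line and all that grew with it cannot be told apart. The 3 arrays of another line, Met1, entered the estimate of spread and the choice of features, and served as a reference for chromosomes. Across genes they correlated at r from 0.987 to 0.995, against 0.947 to 0.986 within NDL and 0.962 to 0.983 within SSM2. The shared estimate of spread may therefore lie below that of the 2 lines compared, which would make adjusted p-values smaller. Whether arrays of a line came from separate animals or tumours is not stated, so a p-value measures the spread between these samples, which may be technical.

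Values were log2 RMA signals of 19938 genes on Affymetrix Mouse Gene 1.0 ST arrays, on which 1 unit is a doubling. Differences are NDL minus SSM2 throughout, a number in parentheses after a gene is its log2 difference, and values listed by array are in the order of replicates 1, 2 and 3. A gene is called, and said to have been higher or lower, where limma, fitted over all genes with Benjamini-Hochberg adjustment, gave an adjusted p under 0.05. Of all genes 16.9% were called, 9.35% higher and 7.52% lower in NDL, and the median difference was 0.09. Each count of called members below is to be read beside these shares. Arrays did not overlap in the higher direction for 19.7% of genes and in the lower direction for 12%. The NDL arrays were not equally like each other. The upper quartile of signal was 7.85, 7.84 and 8.09, and across genes replicates 1 and 2 correlated at r = 0.986 while replicates 2 and 3 reached 0.947. The count of genes called higher, 1865, changed to 1195 without NDL replicate 1, 3996 without NDL replicate 3, 827 without NDL replicates 1 and 2 and 1080 with the 6 arrays alone. The count of genes called lower, 1499, changed to 678 without NDL replicate 1, 890 without NDL replicate 2, 3022 without NDL replicate 3, 363 without NDL replicates 1 and 2 and 675 with the 6 arrays alone. Where a count of called members moved by more than 1.5 times under another setting, that count closes the account of the list, and filters on signal also remove members. A group mean under 4.91, the 25th percentile of mean signal, was near background, and a difference from it has an uncertain size. Within one tumour piece, fewer cells of a type and less RNA per cell cannot be told apart. Erbb2 (feature 10380896, chromosome 11) checked the labels, at 11.27, 11.25 and 11.39 in the NDL arrays and 8.71, 8.98 and 8.71 in the SSM2 arrays. The NDL arrays were all higher (log2 difference 2.50, SE 0.15, adjusted p = 3.29e-05). The array does not tell the transgene's transcript from that of the mouse gene. The epithelial markers Epcam (0.05), Krt18 (-0.09), Krt8 (-0.77) and Cdh1 (-0.71) were not called, and their signal was high in both lines, for Epcam 10.54, 10.38 and 10.87 in the NDL arrays and 10.59, 10.46 and 10.60 in the SSM2 arrays.

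The ducts of the mammary gland are lined by 2 kinds of luminal cell over an outer layer of basal, contractile cells. Hormone-sensing luminal cells carry the receptors for oestrogen and progesterone, encoded by Esr1 and Pgr, under factors such as Foxa1 and Gata3. The others, often marked by Kit and Elf5, give rise to the alveoli, where prolactin acting through STAT5 switches on the milk protein genes in pregnancy and lactation. ErbB2 is a receptor kinase that signals through its partners, mainly to the RAS-ERK and PI3K-AKT pathways, and ERK in turn raises a set of transcription factors and of its own inhibitors.

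The casein genes Csn1s1, Csn1s2a and Csn2, which lie close together on chromosome 5, were among the genes that separated the lines, and their promoter windows are printed because all 3 hold the letters TTCNNNGAA, the form of site that STAT factors are known to bind. Windows run from 250 bases before to 50 bases after the gene's start, are from RefSeq (GRCm38.p6) and are written 5′ to 3′ on the gene's strand, with the matches in capitals. The motif reads the same on both strands. The match in Csn1s2a lies within the 50 bases after the start, and those in Csn1s1 and Csn2 lie before it.
Csn1s1 (chr5:87665958-87666257, plus strand): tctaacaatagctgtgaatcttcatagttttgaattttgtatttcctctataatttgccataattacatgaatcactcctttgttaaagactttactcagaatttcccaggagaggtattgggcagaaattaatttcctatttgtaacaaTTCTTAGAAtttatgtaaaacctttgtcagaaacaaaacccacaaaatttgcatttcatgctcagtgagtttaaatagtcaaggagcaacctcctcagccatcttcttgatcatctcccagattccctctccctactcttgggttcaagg
Csn1s2a (chr5:87774200-87774499, plus strand): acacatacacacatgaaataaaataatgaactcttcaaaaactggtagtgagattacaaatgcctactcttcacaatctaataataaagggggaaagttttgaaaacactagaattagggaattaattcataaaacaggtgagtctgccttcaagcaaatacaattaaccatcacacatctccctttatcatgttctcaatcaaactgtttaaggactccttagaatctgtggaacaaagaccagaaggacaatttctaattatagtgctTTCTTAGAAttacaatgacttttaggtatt
Csn2 (chr5:87699376-87699675, minus strand): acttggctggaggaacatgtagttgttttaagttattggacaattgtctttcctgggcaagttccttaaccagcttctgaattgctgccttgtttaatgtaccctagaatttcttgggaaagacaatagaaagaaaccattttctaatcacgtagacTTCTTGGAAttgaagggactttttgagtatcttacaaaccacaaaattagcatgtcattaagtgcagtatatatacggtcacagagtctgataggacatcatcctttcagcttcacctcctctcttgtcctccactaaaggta

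Of the 11 measured milk protein genes 9 had a window and 4 held the motif, these 3 and Glycam1 (0.01), against 8.3% of 32851 windows of the same length. Ltf, Lcn2, Mfge8, Wap and Lpo had a window with no match. A match is a description of the letters, not a bound site.

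Alveolar and milk genes leaned to NDL, with 17 of 24 higher there and 0 lower, against 9.35% higher and 7.52% lower among all genes, with a median difference of 1.11. Elf5, the transcription factor of alveolar differentiation, stood at 9.98, 10.15 and 10.50 in the NDL arrays and 5.65, 5.82 and 5.25 in the SSM2 arrays. The 2 groups lay far apart, and the difference was 24.9-fold (log2 difference 4.64, SE 0.36, adjusted p = 0.000111). Csn3, a casein of the milk micelle, was at 11.80, 11.94 and 12.25 in the NDL arrays and 6.12, 7.02 and 4.79 in the SSM2 arrays, with SSM2 replicate 3 the lowest of all. Csn1s1, an alpha-casein gene, was at 7.86, 8.28 and 8.37 in the NDL arrays and 3.74, 4.25 and 3.54 in the SSM2 arrays (4.32), and Csn1s2a, another, at 7.74, 8.25 and 8.72 in the NDL arrays and 3.43, 3.44 and 3.09 in the SSM2 arrays (4.92), and no arrays overlapped. Csn2, the beta-casein gene, read 7.51, 8.85 and 9.27 in NDL, where replicate 1 was lowest, and 4.50, 4.72 and 4.48 in SSM2, all under the 25th percentile, as were all SSM2 values of the alpha-casein genes. Its difference was 3.98 (adjusted p = 0.000304). The whey and defence proteins Lcn2 (2.92), a siderophore binder, and Ltf (2.55), lactoferrin, were higher too, as were Wap (1.06), Mfge8 (1.16), of the fat globule coat, and Lpo (0.98), lactoperoxidase. Wap had an adjusted p from 0.0523 to 0.0781 without any 1 of NDL replicates 1 and 2 and SSM2 replicates 2 and 3, and Mfge8 one from 0.0583 to 0.14 without any 1 of Met1 replicates 1, 2 and 3, NDL replicates 1, 2 and 3 and SSM2 replicate 2. Csn1s2b (0.29) and Glycam1 were not called. Among genes of milk fat and secretion, Xdh (2.80), xanthine dehydrogenase of the fat globule, the folate receptor Folr1 (2.70), the potassium channel Kcnn4 (4.16), the butyrophilin Btn1a1 (0.80), the phosphate transporter Slc34a2 (2.27) and the lipid droplet protein Plin2 (0.93) were higher. For Slc34a2 the adjusted p was from 0.0586 to 0.119 without any 1 of Met1 replicates 1 and 2, NDL replicates 1 and 2 and SSM2 replicates 2 and 3, and for Plin2 from 0.0646 to 0.0844 without any 1 of NDL replicates 1 and 2 and SSM2 replicate 2. Of the STAT5 genes, Stat5a (0.66, adjusted p = 0.183) was not called and Stat5b was higher by 0.52, with an adjusted p from 0.0569 to 0.0657 without any 1 of NDL replicates 1 and 2 and SSM2 replicate 2, while the STAT5 targets Cish (0.15) and Socs2 (-0.29) were not called. Alveolar and milk members called higher numbered 9 with the filter at the median and 10 without NDL replicates 1 and 2 together.

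Other genes of luminal progenitors stood beside Elf5. Kit, a receptor kinase, was at 10.12, 10.18 and 10.55 in the NDL arrays and 7.31, 6.73 and 5.67 in the SSM2 arrays, and Lmo4, a LIM-only cofactor active in mammary epithelium, at 11.17, 11.15 and 11.82 in the NDL arrays and 8.03, 7.16 and 6.93 in the SSM2 arrays. In both, SSM2 replicate 1 was the highest and replicate 3 the lowest of the SSM2 arrays, and every NDL array was higher. Tfap2c, an AP-2 transcription factor, was higher by 3.98. Foxi1, a forkhead factor known from acid-secreting cells of the kidney and inner ear, was named after its values were seen and was higher by 3.97. Sox10, a factor of neural crest and of mammary stem and progenitor cells, was at 9.47, 9.74 and 9.66 in the NDL arrays and 5.82, 6.03 and 6.17 in the SSM2 arrays, and the groups did not overlap. Of 13 SOX genes 6 were higher and 0 lower, the others being Sox8 (1.94), Sox5 (1.74), Sox9 (0.997), Sox6 (0.63) and Sox7 (0.63). The calls of Sox9, Sox6 and Sox7 each ended without 1 or more of NDL replicates 1 and 2 and SSM2 replicates 1 and 2, with an adjusted p from 0.0506 to 0.0712 there. SOX genes called higher numbered 3 without NDL replicate 1 or without NDL replicates 1 and 2 together.

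Hormone-sensing genes of luminal cells leaned to SSM2, 7 of 18 being lower in NDL and 2 higher, with a median of -0.55. The receptor genes both fell. Esr1 was at 7.44, 7.42 and 7.73 in the NDL arrays and 8.66, 9.46 and 9.18 in the SSM2 arrays, and Pgr, itself a target of the oestrogen receptor, at 5.02, 4.96 and 4.64 in the NDL arrays and 10.33, 8.86 and 8.74 in the SSM2 arrays, with SSM2 replicate 1 above the other two. The NDL mean of Pgr lay under the 25th percentile. Foxa1, the pioneer factor that opens chromatin for the oestrogen receptor, read 6.12, 5.88 and 5.50 in the NDL arrays and 9.25, 9.27 and 9.98 in the SSM2 arrays, a -3.67 log2 difference (adjusted p = 0.000127), and no arrays of the 2 lines overlapped. Tbx3 (-2.19), a T-box factor of mammary development, Myb (-2.75) and the oestrogen receptor coactivator Cited1 (-3.03) were lower, and Tbx2 (0.60), a relative of Tbx3, was higher. Gata3, the other master factor of luminal cells, was at 9.88, 10.07 and 10.45 in the NDL arrays and 10.60, 9.85 and 11.39 in the SSM2 arrays, groups that overlapped (-0.49, adjusted p = 0.345). Spdef (0.24) was not called, and Xbp1 (0.92), a factor of secretory cells, was higher. Among products of these cells, Tff3 (-0.24), Stc2 (-0.62), Greb1 (0.46), Wnt4 (-1.40) and Tnfsf11 (0.53), the RANK ligand gene, were not called. Cxcl15, a chemokine gene listed with them, read 4.31, 4.27 and 4.14 in the NDL arrays and 12.76, 12.33 and 6.64 in the SSM2 arrays (-6.34), with SSM2 replicate 3 far under the other SSM2 arrays, and its adjusted p was from 0.0507 to 0.0566 without any 1 of NDL replicates 1 and 2 and SSM2 replicate 2. Igfbp5, which binds insulin-like growth factors, was higher by 3.74, with an adjusted p from 0.0532 to 0.103 without any 1 of Met1 replicate 1, NDL replicates 1, 2 and 3 and SSM2 replicates 1, 2 and 3. Hormone-sensing members called higher numbered 0 without NDL replicates 1 and 2 together and 1 without Met1 replicate 1 or NDL replicate 1 or 2 or SSM2 replicate 1, 2 or 3 or with array weights. Hormone-sensing members called lower numbered 4 without NDL replicates 1 and 2 together.

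**Figure D1:**
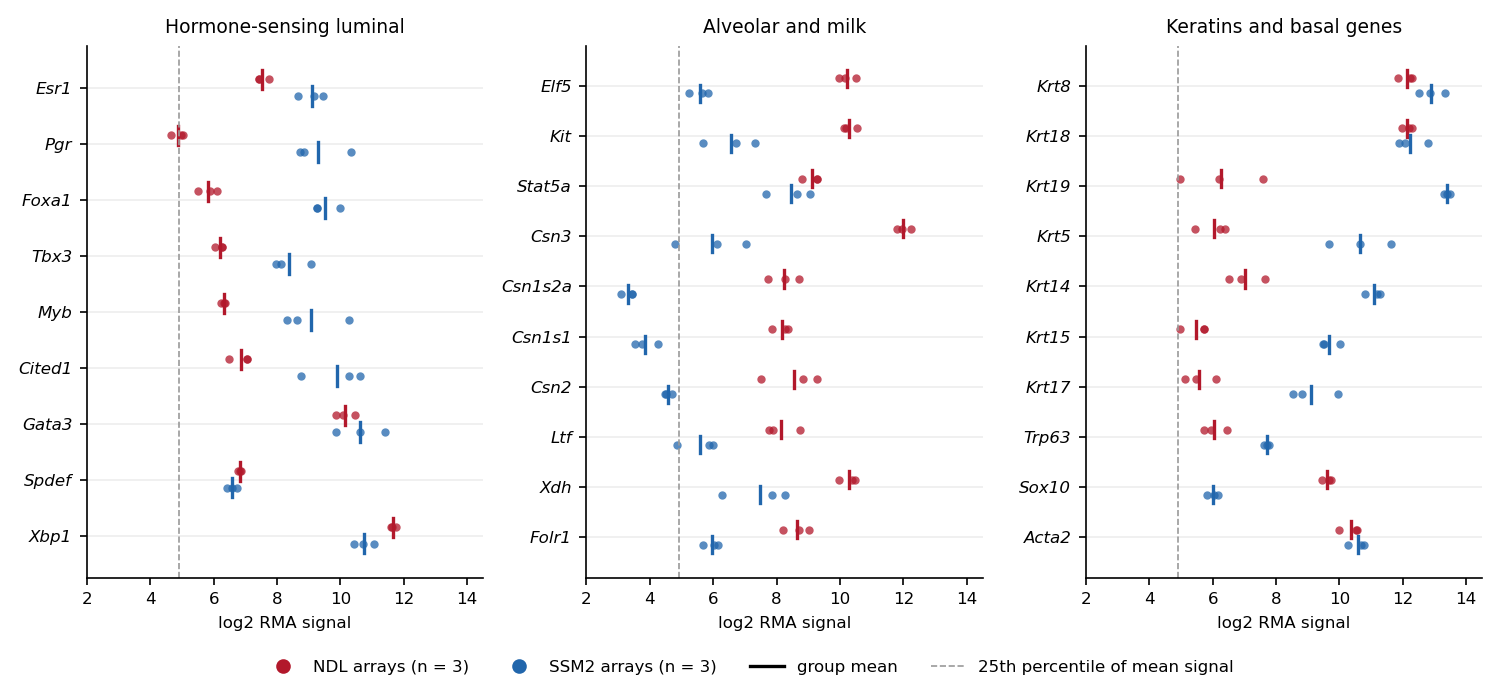
Log2 RMA signal (x axis) of hormone-sensing, alveolar and milk, and keratin and basal genes (rows) in the 3 NDL and 3 SSM2 arrays, 1 point per array, with a bar at each group mean and a dashed line at the 25th percentile of mean signal. Elf5, Kit and the caseins lie to the right in NDL, Esr1, Pgr and Foxa1 to the right in SSM2, and the groups overlap for Gata3, Stat5a, Krt18 and Acta2.

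Simple keratins divided. Krt19 read 4.98, 7.59 and 6.21 in the NDL arrays and 13.48, 13.32 and 13.40 in the SSM2 arrays, the largest fall of any gene, and the NDL arrays spread over more than 2 log2 units while the SSM2 arrays lay close together. Krt23, another type I keratin, moved the other way (log2 difference 2.67, SE 0.12, adjusted p = 7.7e-06). Krt7 (-0.82) was not called. Of 30 basal and stratified genes 8 were lower and 2 higher. The 2 higher ones were among the 13 keratins and regulators, as were 6 of the 8 lower ones. These 13 genes thus moved in both directions, and the 2 higher ones kept their calls whichever array was left out. Those lower were the basal keratins Krt5 (-4.62), Krt14 (-4.07), Krt15 (-4.20) and Krt17 (-3.52), the P-cadherin gene Cdh3 (-2.01), the basal master factor Trp63 (-1.66) and the cornified envelope genes Sprr1a (-6.07) and Sprr1b (-1.62). Krt5 had an adjusted p from 0.0522 to 0.0552 without any 1 of NDL replicate 1 and SSM2 replicate 2. Trp63, at 5.73, 6.44 and 5.96 in the NDL arrays and 7.72, 7.77 and 7.62 in the SSM2 arrays, did not overlap. Among contractile genes of myoepithelium and smooth muscle, Acta2 (-0.22), Tagln (0.37), Myl9 (-0.16) and Mylk (0.16) were not called, Oxtr (0.77), the oxytocin receptor that drives milk ejection, was higher, and so was Smtn (0.51), with an adjusted p from 0.0659 to 0.136 without any 1 of Met1 replicates 1, 2 and 3, NDL replicates 1 and 2 and SSM2 replicates 2 and 3. Basal and stratified genes called higher numbered 6 without NDL replicate 3. Of 14 contractile genes 2 were called higher and 0 lower. Contractile genes called higher numbered 1 without Met1 replicate 1, 2 or 3 or NDL replicate 1 or 2 or SSM2 replicate 2 or 3 or without NDL replicates 1 and 2 together or with the 6 arrays alone or with the replicate block or with the filter at the median or with the intensity trend or with array weights and 6 without NDL replicate 3.

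Of 16 claudin genes of the tight junction 3 were higher and 2 lower. Cldn1 (3.55), from an SSM2 mean under the 25th percentile, Cldn2 (2.89), which forms cation pores, and Cldn10 (1.82) were higher in NDL. Cldn4 (-2.58), Cldn6 (-2.94) and the occludin gene Ocln (-1.16) were lower, Cldn6 with an adjusted p from 0.0683 to 0.0688 without any 1 of NDL replicates 1 and 2. Cldn1 stood at 8.20, 7.76 and 9.02 in the NDL arrays and 5.49, 4.53 and 4.32 in the SSM2 arrays and Cldn4 at 9.19, 8.56 and 8.95 in the NDL arrays and 11.84, 11.08 and 11.52 in the SSM2 arrays, and neither overlapped. Cldn3 (0.65) and Cldn7 (0.50) were not called. Of 22 desmosome and adherens junction genes Cdh3 alone was lower and none was higher (unadjusted p under 0.05 in 2 higher and 3 lower). Dsp (-1.15) is an example of those not called. Desmosome and adherens junction genes called higher numbered 1 without NDL replicate 3. Desmosome and adherens junction genes called lower numbered 0 with the filter at the median, 2 without Met1 replicate 2 or NDL replicate 3 or SSM2 replicate 2 or 3 or with the 6 arrays alone or with the filter at the 25th percentile and 3 without Met1 replicate 3. Of 16 mesenchymal genes 1 was higher and 3 were lower. Twist1 (1.48) was higher, Snai2 (-2.04), Zeb1 (-0.74) and the fibronectin gene Fn1 (-2.38) were lower, and Vim (-0.10), Cdh2 (0.39) and Axl (-0.58) were not called. Zeb1 had an adjusted p from 0.054 to 0.119 without any 1 of Met1 replicates 1, 2 and 3, NDL replicates 1 and 2 and SSM2 replicate 1. Of 16 epithelial regulators 2 were lower, Klf5 (-1.93) and Klf4 (-0.62), and 2 higher, Ovol2 (0.58), which represses mesenchymal genes, and Grhl1 (1.10). The calls of Klf4 and Grhl1 each ended without 1 or more of Met1 replicate 1, NDL replicates 1, 2 and 3 and SSM2 replicates 1 and 3, with an adjusted p from 0.0505 to 0.0965 there. Claudin genes called higher numbered 0 with the filter at the median and 6 without NDL replicate 3. Claudin genes called lower numbered 1 without NDL replicate 1 or 2 or without NDL replicates 1 and 2 together or with the 6 arrays alone or with array weights. Mesenchymal genes called higher numbered 2 without NDL replicate 3 or SSM2 replicate 3 or with array weights. Mesenchymal genes called lower numbered 1 without NDL replicates 1 and 2 together. Epithelial regulators called higher numbered 0 with array weights and 1 without Met1 replicate 1 or NDL replicate 1 or 2 or SSM2 replicate 1 or without NDL replicates 1 and 2 together. Epithelial regulators called lower numbered 0 without NDL replicates 1 and 2 together and 1 without Met1 replicate 1 or NDL replicate 1, 2 or 3 or SSM2 replicate 1 or 3 or with the replicate block or with array weights.

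Genes that move acid, water and ions were among the largest differences. Of 14 carbonic anhydrase and bicarbonate genes 6 were higher and 0 lower. Car2, the cytosolic carbonic anhydrase, which makes bicarbonate and protons from CO2, was at 10.55, 10.06 and 10.67 in the NDL arrays and 5.20, 4.82 and 4.41 in the SSM2 arrays, and Car6, the secreted form of saliva and milk, at 9.68, 9.57 and 10.71 in the NDL arrays and 5.10, 5.05 and 4.95 in the SSM2 arrays. All 3 NDL arrays were at least 4 units above all SSM2 arrays in both. The mitochondrial Car5b (2.21), the sodium bicarbonate cotransporter Slc4a4 (2.52), the anion transporter Slc26a9 (1.68) and Car9 (1.03), the membrane form raised by hypoxia, were higher, Car9 with an adjusted p from 0.0573 to 0.0915 without any 1 of NDL replicates 1 and 2 and SSM2 replicates 2 and 3. Car12 (-0.27) was not called. The water channel gene Aqp5 read 11.99, 12.26 and 12.20 in the NDL arrays and 7.60, 7.64 and 6.26 in the SSM2 arrays, a 31.6-fold difference (log2 difference 4.98, SE 0.36, adjusted p = 7.58e-05), with SSM2 replicate 3 lowest. Kcnn4, a calcium-activated potassium channel, was at 12.01, 12.16 and 12.08 in the NDL arrays and 8.02, 7.87 and 7.87 in the SSM2 arrays, with no overlap. Of 15 sodium, potassium and chloride genes 3 were higher, Kcnn4, the pump regulator Fxyd3 (1.67) and the scaffold Slc9a3r1 (1.02), and 1 lower, Atp1b1 (-1.13), a chain of the sodium pump. The calls of Slc9a3r1 and Atp1b1 each ended without 1 or more of NDL replicates 1 and 2 and SSM2 replicates 1 and 2, with an adjusted p from 0.0502 to 0.0669 there. Carbonic anhydrase and bicarbonate genes called lower numbered 1 without NDL replicate 3 or SSM2 replicate 3. Sodium, potassium and chloride genes called lower numbered 0 without NDL replicate 1 or SSM2 replicate 1 or 2 or without NDL replicates 1 and 2 together or with the 6 arrays alone, 2 without NDL replicate 3 and 3 without SSM2 replicate 3.

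The proton pump of acid-secreting membranes and lysosomes, the V-ATPase, was examined as a list added after the values were seen. Of 21 subunit genes 4 were higher and 1 lower. The higher ones were led by Atp6v1b1 and Atp6v1c2, subunit forms used in specialised acid-secreting epithelia. Atp6v1b1 stood at 10.18, 10.72 and 10.66 in the NDL arrays and 6.32, 6.32 and 5.67 in the SSM2 arrays, and Atp6v1c2 at 10.78, 10.69 and 11.17 in the NDL arrays and 6.01, 6.15 and 5.74 in the SSM2 arrays. Neither overlapped, and the widely expressed counterparts Atp6v1b2 (-0.21) and Atp6v1a (0.48) were not called. Atp6v1e1 (0.62) and, with an adjusted p from 0.0648 to 0.103 without any 1 of Met1 replicates 1, 2 and 3, NDL replicates 1 and 2 and SSM2 replicates 1, 2 and 3, Atp6v0a4 (0.44) were higher, and Atp6v1g1 (-0.49) was lower, with an adjusted p from 0.0546 to 0.12 without any 1 of Met1 replicates 1 and 2, NDL replicates 1 and 2 and SSM2 replicates 1 and 3. V-ATPase subunits called higher numbered 2 without NDL replicates 1 and 2 together. V-ATPase subunits called lower numbered 0 without Met1 replicate 1 or 2 or NDL replicate 1 or 2 or SSM2 replicate 1 or 3 or without NDL replicates 1 and 2 together or with the 6 arrays alone or with the replicate block or with the intensity trend or with array weights.

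Of 13 zinc, calcium and water genes 3 were higher and 4 lower. Metallothioneins are small proteins that bind zinc and copper, and their genes are switched on by the metal-sensing factor MTF1. Mt1 stood at 10.30, 10.29 and 10.65 in the NDL arrays and 11.99, 12.04 and 12.19 in the SSM2 arrays (log2 difference -1.66, SE 0.13, adjusted p = 0.000134), and Mt2 at 8.44, 8.48 and 9.23 in the NDL arrays and 12.51, 12.51 and 12.63 in the SSM2 arrays (log2 difference -3.84, SE 0.28, adjusted p = 8.73e-05). SSM2 arrays lay close together for both genes, and NDL replicate 3 was the highest NDL array. Slc39a4, which imports zinc at the cell surface, was at 6.42, 6.42 and 6.03 in the NDL arrays and 9.14, 8.69 and 10.30 in the SSM2 arrays (-3.09), and no arrays overlapped. Slc39a8 (1.99), an importer of zinc and manganese, the calcium channel Trpv6 (1.38) and Aqp5 (above) were higher, and the water channel gene Aqp3 (-0.52) was lower, with an adjusted p from 0.0527 to 0.0879 without any 1 of the 9 arrays. The RefSeq windows of both metallothionein genes on chromosome 8 are printed for the letters TGCNCNC. These are looser than the core of the element MTF1 is known to bind, which has A or G at the first N. Some matches in Mt2, such as TGCTCTC, therefore lack the form of that core. Both strands were searched, with overlaps counted and matches shown in capitals.
Mt1 (chr8:94178839-94179138, plus strand): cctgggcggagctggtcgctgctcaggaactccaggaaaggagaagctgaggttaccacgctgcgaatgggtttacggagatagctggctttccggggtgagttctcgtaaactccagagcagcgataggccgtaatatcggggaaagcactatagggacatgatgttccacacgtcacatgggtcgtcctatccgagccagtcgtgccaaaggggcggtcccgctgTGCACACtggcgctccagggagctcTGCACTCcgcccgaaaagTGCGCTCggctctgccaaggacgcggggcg
Mt2 (chr8:94172368-94172667, plus strand): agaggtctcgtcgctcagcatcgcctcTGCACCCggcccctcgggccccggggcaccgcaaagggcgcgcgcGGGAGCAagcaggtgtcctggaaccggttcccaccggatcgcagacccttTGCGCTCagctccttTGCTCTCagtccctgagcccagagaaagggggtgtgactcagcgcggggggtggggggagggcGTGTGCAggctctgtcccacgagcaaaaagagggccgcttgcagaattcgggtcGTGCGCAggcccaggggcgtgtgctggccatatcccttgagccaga

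Mt1 held 3 matches and Mt2 6. Of all windows 51% held at least 1 match, 7.1% at least 3 and 0.225% at least 6. Binding of the factor was not measured.

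Of 19 iron genes 5 were higher and 3 lower. Transferrin, the iron carrier of plasma and milk (Trf), was at 13.85, 13.86 and 13.83 in the NDL arrays and 12.60, 11.62 and 10.33 in the SSM2 arrays (2.33), and the SSM2 arrays ranged over more than 2 units against almost none in NDL. The ferritin heavy chain Fth1 (0.84) and the importer Slc11a2 (0.76) were higher, beside Lcn2 and Ltf named above. The metalloreductases Steap4 (-3.33), Steap2 (-2.43) and Steap1 (-1.20) were lower, Steap1 with an adjusted p from 0.0563 to 0.0618 without any 1 of NDL replicate 1 and SSM2 replicates 1 and 2. The transferrin receptor Tfrc (0.59) was not called. Iron genes called higher numbered 3 without NDL replicates 1 and 2 together. Iron genes called lower numbered 1 without NDL replicates 1 and 2 together and 6 without NDL replicate 3.

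Among outputs of ERK signalling 12 of 22 were higher in NDL and 0 lower, with a median of 0.97. Etv1 and Etv5, ETS factors switched on by ERK, were at 9.57, 9.44 and 10.35 in the NDL arrays and 5.91, 5.60 and 4.96 in the SSM2 arrays and at 10.71, 10.79 and 10.80 in the NDL arrays and 7.61, 7.80 and 6.41 in the SSM2 arrays. In both, SSM2 replicate 3 was the lowest and the groups were far apart. Etv4 (1.08) had a smaller difference. Among feedback inhibitors 5 of 9 were higher: Spry4 (2.53), Spry2 (1.76), the ERK phosphatases Dusp6 (1.64) and Dusp4 (0.98), and Spred3 (0.68). Dusp4 had an adjusted p from 0.0586 to 0.0862 without any 1 of NDL replicate 1 and SSM2 replicates 1 and 2. The cyclin gene Ccnd1 (1.90), Phlda1 (3.26) and the Eph receptors Epha4 (1.18) and Epha2 (1.13) were also higher. The immediate early genes Fos (-0.13), Egr1 (-0.13), Fosl1 (-0.25) and Myc (-1.09) were not called. ERK outputs called higher numbered 6 without NDL replicates 1 and 2 together. ERK outputs called lower numbered 1 without SSM2 replicate 1 or 3. Feedback inhibitors called higher numbered 2 without NDL replicates 1 and 2 together.

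Among ErbB ligands 2 of 10 were higher and 2 lower. Betacellulin (Btc) and epigen (Epgn), ligands of the EGF receptor, stood at 5.72, 5.77 and 6.33 in the NDL arrays and 9.18, 9.26 and 8.32 in the SSM2 arrays (-2.98) and at 4.87, 4.73 and 5.13 in the NDL arrays and 7.97, 6.74 and 6.07 in the SSM2 arrays (-2.01). Every SSM2 array was above every NDL array for both. The neuregulins Nrg2 (1.95) and Nrg1 (0.91), which bind ErbB3 and ErbB4, were higher. Other EGF receptor ligands, Tgfa (0.10), Hbegf (0.13) and Ereg (-2.04), were not called. The receptors Egfr (0.11), Erbb3 (0.41) and Erbb4 (0.09) were not called either, while Lrig1 (1.61) and Lrig3 (1.01), membrane proteins of which the first promotes the breakdown of ErbB receptors, were higher. ErbB ligands called higher numbered 1 with the filter at the median. ErbB ligands called lower numbered 1 without NDL replicates 1 and 2 together or with the 6 arrays alone or with the filter at the median.

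Of 39 other receptor kinases and their ligands 4 were higher and 6 lower, against 9.35% and 7.52% of all genes. Fgfr3, a fibroblast growth factor receptor, was at 5.94, 6.44 and 6.23 in the NDL arrays and 9.44, 8.44 and 8.06 in the SSM2 arrays (-2.44), and Igf2, the fetal insulin-like growth factor, at 5.46, 5.77 and 5.25 in the NDL arrays and 9.12, 9.48 and 7.59 in the SSM2 arrays (-3.24), with SSM2 replicate 3 its lowest SSM2 array. No arrays overlapped for either. The growth factors Hgf (-1.93), Pdgfa (-1.19) and Pdgfb (-0.87) were lower, as was Fgf1 (-0.71), with an adjusted p from 0.0568 to 0.0742 without any 1 of NDL replicates 1 and 2 and SSM2 replicate 1. Gas6 (1.45), the ligand of Axl, was higher, with an adjusted p from 0.0768 to 0.0825 without any 1 of NDL replicates 1 and 2 and SSM2 replicate 2, and so were Igf1r (0.75), with an adjusted p of 0.0615 without NDL replicate 1, and the collagen receptor Ddr1 (0.57), with an adjusted p from 0.0601 to 0.124 without any 1 of Met1 replicates 1 and 2, NDL replicates 1 and 2 and SSM2 replicates 1, 2 and 3. Fgfr1 (0.73), Met (0.95) and Insr (-0.28) were not called. Receptor kinase and ligand genes called higher numbered 1 without NDL replicates 1 and 2 together, 2 without NDL replicate 1 or 2 or SSM2 replicate 2 or with the 6 arrays alone or with array weights and 8 without NDL replicate 3. Receptor kinase and ligand genes called lower numbered 3 without NDL replicates 1 and 2 together and 11 without SSM2 replicate 3.

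In the PI3K pathway 7 of 28 members were higher and 2 lower, against 9.35% and 7.52% of all genes. The insulin receptor substrates Irs1 (2.13) and Irs2 (1.22), adaptors that bring PI3K to insulin and IGF receptors, were higher, Irs1 with an adjusted p from 0.0524 to 0.065 without any 1 of NDL replicate 1 and SSM2 replicate 2. Foxo1 (1.16), a factor that AKT keeps out of the nucleus, was higher. In 2 pairs of counterparts the members moved in opposite directions. The AKT phosphatase Phlpp1 (1.30) was higher and Phlpp2 (-0.46) lower, and Rptor (0.55), the subunit that defines mTOR complex 1, was higher while Rictor (-1.33), that of complex 2, was lower. Rictor stood at 7.81, 7.50 and 8.34 in the NDL arrays and 9.39, 9.33 and 8.91 in the SSM2 arrays. Akt1 (0.41) and Foxo3 (0.60) were higher with adjusted p from 0.051 to 0.0737 without any 1 of Met1 replicate 1, NDL replicates 1 and 2 and SSM2 replicates 1 and 2 and from 0.0508 to 0.105 without any 1 of Met1 replicates 1 and 3, NDL replicates 1 and 2 and SSM2 replicates 1 and 2 respectively, and Akt2 (0.09), Pik3ca (-1.08) and Sgk1 (-0.08) were not called. PI3K pathway members called higher numbered 2 without NDL replicates 1 and 2 together, 3 with the 6 arrays alone and 4 without NDL replicate 1 or SSM2 replicate 2. PI3K pathway members called lower numbered 0 without NDL replicates 1 and 2 together, 4 with array weights and 5 without NDL replicate 3.

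Wnt genes were called higher in 8 of 48 members and lower in 2, against 9.35% and 7.52% of all genes. Wnt5a, a ligand that acts mostly outside the beta-catenin pathway, was at 7.58, 7.05 and 7.80 in the NDL arrays and 11.26, 9.96 and 10.58 in the SSM2 arrays (-3.12), and the receptor Fzd4 at 5.52, 5.69 and 6.22 in the NDL arrays and 8.57, 7.52 and 7.71 in the SSM2 arrays (-2.12). Both were lower in every NDL array. Lef1, the partner of beta-catenin on DNA, stood at 8.53, 8.45 and 8.20 in the NDL arrays and 5.96, 5.82 and 5.72 in the SSM2 arrays (2.56), and Rnf43, which clears frizzled receptors and is itself a Wnt target, at 8.50, 8.42 and 8.64 in the NDL arrays and 5.78, 5.83 and 5.49 in the SSM2 arrays (2.82), with no overlap. Wnt5b (0.80) was higher too. Axin2 (0.14), the general target of beta-catenin signalling, was not called, nor were Ctnnb1 (0.31), Lrp5 (0.48) and Lrp6 (0.12). Sfrp1 (1.93), a secreted antagonist, and Nkd2 (1.50) were higher with adjusted p from 0.0508 to 0.136 without any 1 of Met1 replicates 1 and 2, NDL replicates 1, 2 and 3 and SSM2 replicates 2 and 3 and from 0.0583 to 0.13 without any 1 of Met1 replicate 1, NDL replicates 1 and 2 and SSM2 replicates 2 and 3 respectively. The receptors Fzd5 (0.86) and Fzd7 (0.88) and the R-spondin Rspo3 (0.53), which enhances Wnt signals, were higher too, and their calls each ended without 1 or more of Met1 replicates 1 and 3, NDL replicates 1 and 2 and SSM2 replicates 2 and 3, with an adjusted p from 0.0522 to 0.0989 there. Wnt genes called higher numbered 2 without NDL replicates 1 and 2 together, 3 without SSM2 replicate 2 or with array weights, 4 without NDL replicate 1, 5 without Met1 replicate 1 or NDL replicate 2 or SSM2 replicate 3 or with the 6 arrays alone and 13 without NDL replicate 3. Wnt genes called lower numbered 1 without NDL replicates 1 and 2 together and 5 without SSM2 replicate 3.

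Notch genes were higher in 6 of 20 members and lower in 2. The ligands went apart. Dll1 was at 9.16, 9.68 and 9.39 in the NDL arrays and 6.55, 6.77 and 6.29 in the SSM2 arrays (2.88), and Jag1 at 7.58, 6.96 and 7.53 in the NDL arrays and 9.48, 9.40 and 9.33 in the SSM2 arrays (-2.05), both without overlap. The receptor Notch1 (1.47) and the target repressors Hey1 (3.64) and Hey2 (0.85) were higher, and so was the target Nrarp (0.85), with an adjusted p of 0.0561 without NDL replicate 1. Hey1 read 9.43, 9.93 and 10.07 in the NDL arrays and 6.06, 6.14 and 6.32 in the SSM2 arrays. Hes1 (-0.39), the most widely used target, and Notch2 (-0.43) and Notch3 (0.30) were not called. The fringe enzymes, which add sugars to Notch and so set its choice of ligand, moved oppositely, Rfng by 0.50 and Lfng by -1.49, while Mfng (0.00) was not called. Notch genes called higher numbered 2 without NDL replicates 1 and 2 together. Notch genes called lower numbered 1 without NDL replicates 1 and 2 together.

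TGF-beta and BMP genes went both ways, 9 higher and 13 lower of 46. The ligands Tgfb3 and Tgfb2 (2.15) were higher, Tgfb3 at 11.32, 11.54 and 11.67 in the NDL arrays and 9.05, 9.37 and 7.59 in the SSM2 arrays (2.84), while Tgfb1 (-0.29) was not called. The BMP ligands Bmp4 (-1.14) and Bmp7 (-1.11) were lower, Bmp4 with an adjusted p of 0.0563 without NDL replicate 1. The activin subunit Inhba (-1.14) and Bmp3 (-0.58) were lower too, and Gdf10 (0.54) was higher. Follistatin (Fst), which traps activin, was at 6.35, 6.71 and 6.43 in the NDL arrays and 8.98, 8.90 and 9.52 in the SSM2 arrays (-2.64), and Ltbp1, which tethers latent TGF-beta to matrix, at 7.58, 6.90 and 7.08 in the NDL arrays and 10.72, 10.06 and 9.29 in the SSM2 arrays (-2.84). Both were lower without overlap. The coreceptor Tgfbr3 (1.70) and the decoy receptor Bambi (1.40) were higher. Of the receptors and their antagonists, Acvr1b (0.56) was higher and Tgfbr1 (-1.61), Acvr1 (-0.54) and Fstl3 (-0.77) were lower, and the latent binding protein Ltbp2 (1.63) was higher. The calls of these and of Inhba, Bmp3 and Gdf10 each ended without 1 or more of the 9 arrays, with an adjusted p from 0.0504 to 0.124 there. The BMP transducers Smad1 (-0.76) and Smad5 (-0.97) were lower, and Smad2 (-0.44), Smad3 (0.17) and Smad4 (-0.29) were not called. The ID genes, inhibitors of helix-loop-helix factors and targets of BMP, split: Id2 (2.47) and Id4 (1.67) were higher, and Id3 (-2.45) and Id1 (-0.61) lower. Id2 read 10.54, 10.79 and 10.61 in the NDL arrays and 8.88, 8.09 and 7.56 in the SSM2 arrays and Id3 6.70, 6.53 and 5.97 in the NDL arrays and 8.96, 8.79 and 8.81 in the SSM2 arrays. The adjusted p of Id1 was from 0.0512 to 0.0782 without any 1 of Met1 replicate 2, NDL replicates 1 and 2 and SSM2 replicates 1, 2 and 3. TGF-beta and BMP members called higher numbered 3 without NDL replicates 1 and 2 together. TGF-beta and BMP members called lower numbered 5 without NDL replicates 1 and 2 together, 6 without NDL replicate 1 or with the 6 arrays alone and 8 without NDL replicate 2 or SSM2 replicate 1.

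**Figure D2:**
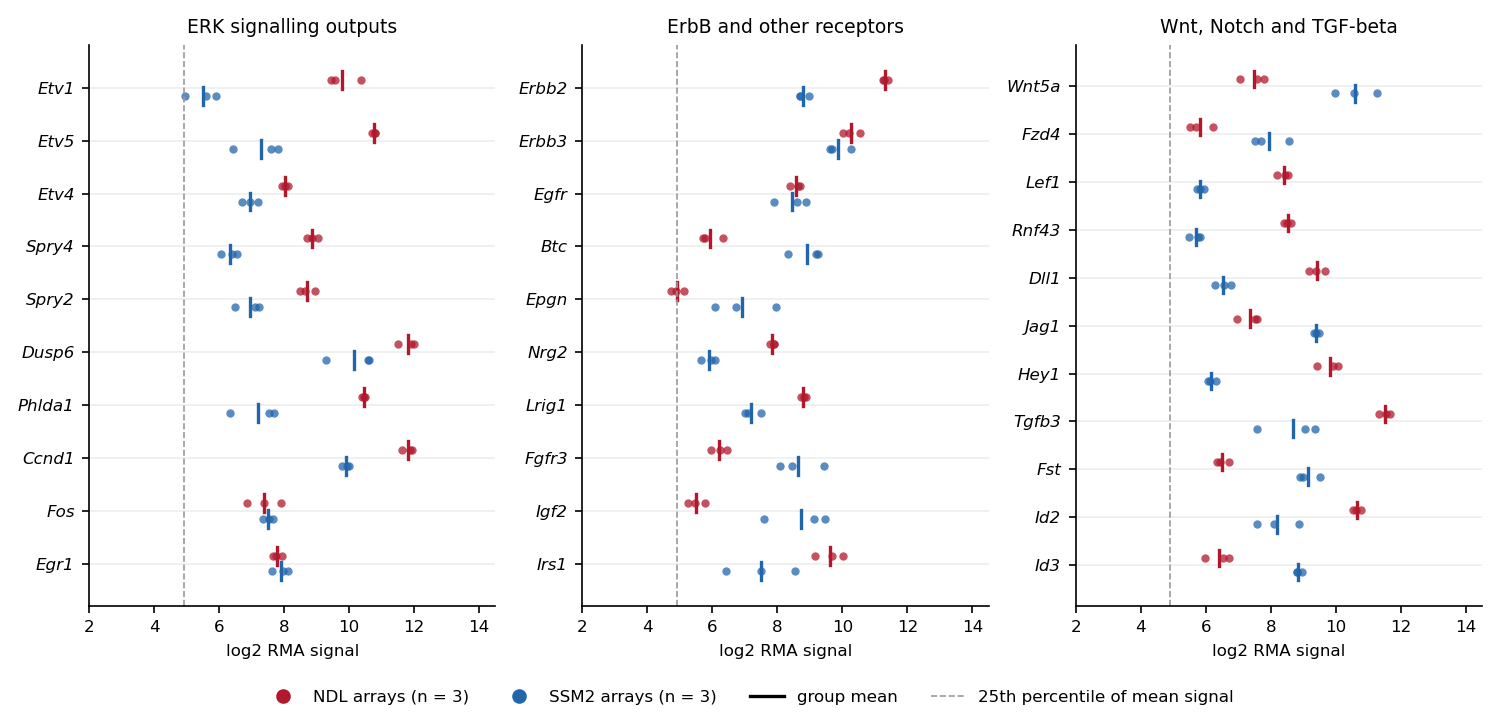
Log2 RMA signal (x axis) of ERK outputs, ErbB and other receptors with their ligands, and Wnt, Notch and TGF-beta genes (rows) in the 3 NDL and 3 SSM2 arrays, 1 point per array, with a bar at each group mean and a dashed line at the 25th percentile of mean signal. The NDL points lie to the right for Etv1, Etv5, Hey1 and Tgfb3 and to the left for Btc, Igf2, Wnt5a and Fst, and the groups overlap for Fos, Egr1, Egfr and Erbb3.

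Of 39 secreted products of epithelium 11 were higher and 8 lower. Within the chloride channel accessory family, Clca1 stood at 5.53, 5.77 and 5.14 in the NDL arrays and 12.84, 11.002 and 9.10 in the SSM2 arrays, and Clca3a2 at 11.71, 10.98 and 12.54 in the NDL arrays and 6.25, 5.22 and 7.64 in the SSM2 arrays. The 2 genes were thus high in opposite lines, and Clca2 (4.01) and Clca3a1 (3.77) went with Clca3a2. Close relatives can share probes, so the Clca3a1 and Clca3a2 values may not be independent. The whey acidic protein family divided in the same manner, with Wfdc18 (5.64) and Wfdc3 (1.55) higher and Wfdc2 (-2.93) and Slpi (-2.35), a protease inhibitor of mucosal surfaces, lower, as was Wfdc12 (-0.67). Among mucins Muc15 (3.11) and Muc20 (1.18) were higher, and Muc13 (-3.84) and Muc1 (-1.74) lower. Ceacam10, a secreted member of the carcinoembryonic antigen family, stood at 10.19, 9.83 and 9.997 in the NDL arrays and 4.99, 4.38 and 4.61 in the SSM2 arrays (5.35), with every SSM2 array near background. The antibody transporter Pigr (3.18), the lipocalin Apod (4.91) and the chitinase-like Chil1 (5.27) were higher. Itih2 (-6.99), an inhibitor heavy chain that binds hyaluronan, and the serpin Serpinb5 (-1.94) were lower, as was Has2, which makes hyaluronan, at 5.08, 4.76 and 5.81 in the NDL arrays and 10.70, 8.34 and 8.39 in the SSM2 arrays (-3.93). SSM2 replicate 1 was the highest array for Has2. The calls of Wfdc12, Muc1 and Serpinb5 each ended without 1 or more of Met1 replicates 1, 2 and 3, NDL replicates 1 and 2 and SSM2 replicates 1, 2 and 3, with an adjusted p from 0.0533 to 0.132 there. Secreted product genes called higher numbered 5 with the filter at the median. Secreted product genes called lower numbered 2 without NDL replicates 1 and 2 together and 5 without NDL replicate 1 or 2 or SSM2 replicate 1.

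Of 18 serotonin and amine genes 2 were higher and 1 lower, and of 26 prostaglandin genes 3 and 2. These counts lay near the shares over all genes, 9.35% higher and 7.52% lower. Tph1, the first enzyme of serotonin synthesis outside the brain, was at 4.72, 4.86 and 4.57 in the NDL arrays and 10.19, 9.30 and 11.76 in the SSM2 arrays (-5.70), with an NDL mean under the 25th percentile. Ptgs2, the inducible cyclooxygenase, stood at 5.63, 5.88 and 5.93 in the NDL arrays and 11.41, 8.99 and 8.07 in the SSM2 arrays, with SSM2 replicate 1 well above the other 2. Its difference was -3.68 (adjusted p = 0.00956). Ptges (-1.68), the inducible prostaglandin E synthase, was lower with an adjusted p from 0.0502 to 0.106 without any 1 of Met1 replicates 1, 2 and 3, NDL replicates 1 and 2 and SSM2 replicates 1 and 2, and Ptges2 (1.09) and the prostaglandin D synthase Ptgds (0.74) were higher. So were the prostaglandin transporter Slco2a1 (1.59), with an adjusted p of 0.0562 without NDL replicate 2, the vesicular amine transporter Slc18a1 (0.86) and the aldehyde dehydrogenase Aldh2 (1.86). Serotonin receptor genes such as Htr2a (0.21) and Htr7 (-0.05), and Ddc (0.50), the next enzyme, were not called. Serotonin and amine genes called higher numbered 1 without NDL replicates 1 and 2 together or with the filter at the 25th percentile or with the filter at the median and 6 without NDL replicate 3. Serotonin and amine genes called lower numbered 3 without SSM2 replicate 3. Prostaglandin genes called lower numbered 0 without NDL replicates 1 and 2 together, 1 without Met1 replicate 1, 2 or 3 or NDL replicate 1 or 2 or SSM2 replicate 1 or 2 or with the 6 arrays alone or with the replicate block, 4 without NDL replicate 3 and 5 without SSM2 replicate 3.

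Among 18 glycolysis genes 6 were higher and 1 lower. Aldoc, the aldolase best known from brain, was at 12.91, 12.93 and 12.85 in the NDL arrays and 8.65, 9.24 and 10.02 in the SSM2 arrays (3.59), and Ldhb, the lactate dehydrogenase subunit of oxidative tissues, at 9.80, 10.06 and 9.90 in the NDL arrays and 6.61, 6.73 and 5.68 in the SSM2 arrays (3.58). Both were higher in every NDL array, and the NDL values of Aldoc lay close together. Eno2 (1.73) and Pfkm (1.15) were higher, while Ldha (0.16), Pgk1 (0.32), Pkm (0.35) and Hk1 (0.27), the common forms, were not called. Aldoa (0.77) and Pfkl (1.12) were higher with adjusted p from 0.0598 to 0.0723 without any 1 of NDL replicates 1 and 2 and SSM2 replicates 1 and 2 and from 0.0514 to 0.0792 without any 1 of Met1 replicate 1, NDL replicates 1 and 2 and SSM2 replicates 1 and 2 respectively. The lactate transporter Slc16a1 (-0.88) was lower. Of 14 hypoxia genes 2 were higher, Car9 (above) and Egln3 (2.87), and 2 lower, P4ha2 (-2.09) and Ndrg1 (-1.34), with a median of -0.67. Bnip3 (-1.16) and Kdm3a (-0.66) were not called. The calls of Slc16a1 and Ndrg1 each ended without 1 or more of Met1 replicates 1, 2 and 3, NDL replicates 1 and 2 and SSM2 replicates 1 and 2, with an adjusted p from 0.0587 to 0.137 there. Glycolysis genes called lower numbered 0 without Met1 replicate 1, 2 or 3 or NDL replicate 1 or 2 or SSM2 replicate 1 or 2 or without NDL replicates 1 and 2 together or with the 6 arrays alone or with the replicate block. Hypoxia genes called higher numbered 0 without NDL replicates 1 and 2 together and 1 without NDL replicate 1 or 2 or SSM2 replicate 2 or 3 or with array weights. Hypoxia genes called lower numbered 1 without NDL replicate 2 or SSM2 replicate 1 or without NDL replicates 1 and 2 together and 4 without NDL replicate 3 or with the replicate block.

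Lipid synthesis genes were higher in 10 of 31 fatty acid members and in 10 of 26 cholesterol members, and lower in 3 and 2. Srebf1, the factor that switches on fatty acid synthesis, was at 10.71, 11.07 and 10.97 in the NDL arrays and 8.64, 8.54 and 8.28 in the SSM2 arrays (2.43), and Fabp5, a fatty acid carrier, at 9.83, 10.26 and 9.21 in the NDL arrays and 5.99, 6.32 and 5.996 in the SSM2 arrays (3.67), neither with overlap. Acss2 (1.89), which makes acetyl-CoA from acetate, Elovl5 (1.42), Lpin1 (1.09) and the lipases Mgll (2.22) and Pnpla2 (0.92) were higher, beside the desaturase Fads2 (1.21), Plin2 (above) and Plin3 (0.39). Fads3 (-0.97), the elongase Elovl7 (-1.19) and the acyltransferase Gpam (-0.75) were lower. The core enzymes Fasn (0.34), Acly (0.02) and Scd1 (1.18) were not called. For cholesterol, Dhcr7 (2.18), Lss (1.42), Nsdhl (1.07) and the regulators Insig1 (1.69), Scap (0.86) and Srebf2 (0.59) were higher. Hmgcs1 (-1.87), the synthase at the start of the pathway, which lies on chromosome 13, and Sqle (-1.25) were lower. The enzymes Pmvk (0.98), Mvd (1.05), Cyp51 (0.68) and Tm7sf2 (1.35) were higher. The calls of these 4 and of Fads2, Plin3, Elovl7 and Gpam each ended without 1 or more of Met1 replicates 1, 2 and 3, NDL replicates 1 and 2 and SSM2 replicates 1, 2 and 3, with an adjusted p from 0.0502 to 0.133 there. Fatty acid members called higher numbered 4 without NDL replicates 1 and 2 together. Fatty acid members called lower numbered 1 without NDL replicate 1 or 2 or SSM2 replicate 1 or without NDL replicates 1 and 2 together. Cholesterol members called higher numbered 5 without NDL replicates 1 and 2 together or with the 6 arrays alone and 6 without NDL replicate 2. Cholesterol members called lower numbered 6 without NDL replicate 3.

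Of 20 glutathione genes 7 were higher and 4 lower. Gclc, the rate-limiting enzyme of glutathione synthesis, was at 7.36, 7.22 and 7.66 in the NDL arrays and 9.97, 9.44 and 9.75 in the SSM2 arrays (-2.31), and Gsr, which regenerates reduced glutathione, at 8.60, 8.83 and 8.88 in the NDL arrays and 11.08, 10.53 and 11.05 in the SSM2 arrays (-2.11), both lower without overlap. Transferases, which consume it, were called in both directions. Higher were Mgst1, at 11.55, 11.49 and 11.73 in the NDL arrays and 8.97, 8.80 and 8.51 in the SSM2 arrays (2.83), Gsta3 (2.72), Gstm5 (2.51), Gstt1 (2.44), Mgst2 (2.23) and Gstm1 (1.55). Gpx4 (0.95), the peroxidase that protects membrane lipids, was higher too. The transferase Gsto1 (-0.997) and the peroxidase Gpx8 (-0.95) were lower. Genes of the cytosolic transferases are close relatives, so their probes may share targets. Of 16 other antioxidant genes 2 were higher, Keap1 (0.56), the sensor that holds back NRF2, and catalase (Cat), and 3 lower, Prdx4 (-2.58), the thioredoxin gene Txn1 (-0.89) and Aldh3a1 (-2.43). The calls of Gsto1, Gpx8 and Aldh3a1 each ended without 1 or more of Met1 replicate 1, NDL replicates 1 and 2 and SSM2 replicates 1 and 2, with an adjusted p from 0.0507 to 0.0891 there, and that of Cat ended in some fits with 1 array left out. Gclm (-0.37), Gpx1 (-0.21), Sod1 (-0.18) and Nfe2l2 (0.36), the master factor of the antioxidant response, were not called. Glutathione genes called lower numbered 2 without NDL replicate 2 or SSM2 replicate 1 or 2 or without NDL replicates 1 and 2 together or with the 6 arrays alone. Other antioxidant genes called higher numbered 0 without NDL replicates 1 and 2 together and 1 without Met1 replicate 1, 2 or 3 or NDL replicate 1 or 3 or SSM2 replicate 1, 2 or 3 or with the 6 arrays alone or with the replicate block or with the intensity trend or with array weights. Other antioxidant genes called lower numbered 1 without NDL replicates 1 and 2 together.

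Of 23 amino acid transporters 5 were higher and 5 lower. The arginine transporter Slc7a2 stood at 5.74, 5.97 and 5.80 in the NDL arrays and 10.97, 9.75 and 8.78 in the SSM2 arrays (-3.997), and Slc7a5, which imports large neutral amino acids, at 11.16, 10.998 and 11.25 in the NDL arrays and 8.94, 8.64 and 8.37 in the SSM2 arrays (2.48). No arrays overlapped. Slc3a2 (0.80), the partner chain of Slc7a5, and the glutamate transporter Slc1a1 (2.72) were higher, and Slc1a3 (-1.87), another glutamate transporter, the taurine transporter Slc6a6 (-1.67) and the glycine transporter Slc6a9 (-1.05) were lower. Slc6a14 (2.12) and Slc7a7 (0.73) were higher and Slc36a4 (-1.06) lower. The calls of these 3 and of Slc1a3 each ended without 1 or more of Met1 replicates 1, 2 and 3, NDL replicates 1 and 2 and SSM2 replicates 1, 2 and 3, with an adjusted p from 0.0532 to 0.132 there. Of 15 targets of ATF4, a factor of amino acid stress, 4 were higher and 1 lower. Vldlr, a lipoprotein receptor, was at 9.27, 8.80 and 9.76 in the NDL arrays and 6.16, 5.45 and 5.83 in the SSM2 arrays (3.47). Cebpb (1.05), a factor of alveolar and stress responses, was higher, as was Trib3 (0.87), with an adjusted p from 0.0577 to 0.0921 without any 1 of Met1 replicate 1, NDL replicates 1 and 2 and SSM2 replicates 1 and 2. In serine synthesis the first enzyme, Phgdh (-2.29), was lower and the second, Psat1 (1.36), higher. Fah (3.69), the last enzyme of tyrosine breakdown, was higher. Atf4 (0.16) and Asns (-0.58) were not called. Amino acid transporters called higher numbered 3 without NDL replicate 1 or SSM2 replicate 2 or with the 6 arrays alone or with the filter at the median. Amino acid transporters called lower numbered 1 without NDL replicates 1 and 2 together and 3 without NDL replicate 1. ATF4 targets called higher numbered 1 without NDL replicates 1 and 2 together. ATF4 targets called lower numbered 0 without NDL replicates 1 and 2 together and 2 without SSM2 replicate 3.

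Respiratory chain genes were higher in 9 of 59 members and lower in 1, Ndufs4 (-1.10), a complex I subunit that lies on chromosome 13. All genes gave 9.35% higher and 7.52% lower, beside which the counts of this paragraph stand. Atp5d (0.65) and Cox7a2 (0.60) were higher in every fit with 1 array left out. The complex I genes Ndufa2 (1.11), Ndufa5 (0.65), Ndufa6 (0.95), Ndufb5 (0.41) and Ndufc2 (0.86) and the complex IV genes Cox6b1 (0.77) and Cox7a1 (1.38) were higher, and their calls each ended without 1 or more of Met1 replicates 1, 2 and 3, NDL replicates 1 and 2 and SSM2 replicates 1, 2 and 3, with an adjusted p from 0.0506 to 0.139 there. Respiratory chain genes called higher numbered 2 without NDL replicate 2 or without NDL replicates 1 and 2 together or with the 6 arrays alone, 3 without NDL replicate 1 or SSM2 replicate 1, 4 with array weights, 5 without SSM2 replicate 3 or with the replicate block and 17 without NDL replicate 3. Respiratory chain genes called lower numbered 0 without NDL replicates 1 and 2 together and 2 without NDL replicate 3 or SSM2 replicate 1. Of 23 genes of the tricarboxylic acid cycle 3 were higher, Sdhc (0.78), Mdh1 (0.61) and, with an adjusted p from 0.0514 to 0.128 without any 1 of the 9 arrays, Dlst (0.35), and 1 lower, Sdha (-0.65). Tricarboxylic acid cycle genes called higher numbered 0 without NDL replicates 1 and 2 together. Tricarboxylic acid cycle genes called lower numbered 0 without NDL replicates 1 and 2 together and 4 without NDL replicate 3.

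Of 16 chaperone and folding genes of the endoplasmic reticulum 3 were higher, Creld2 (0.85), Sdf2l1 (0.57) and Manf (0.47), and 0 lower. The abundant chaperones Hspa5 (-0.05) and Pdia3 (-0.23) were not called. Of 14 genes of its stress sensors and degradation machinery 3 were higher, Xbp1 (above), Sel1l (1.46) and the ubiquitin ligase Syvn1 (0.37), and 1 lower, Ssr1 (-0.85). The calls of Sdf2l1, Manf, Syvn1 and Ssr1 each ended without 1 or more of the 9 arrays, with an adjusted p from 0.0521 to 0.115 there. Chaperone and folding genes called higher numbered 0 without NDL replicates 1 and 2 together, 1 without NDL replicate 1 or 2 or SSM2 replicate 2 or 3 or with the 6 arrays alone or with the intensity trend or with array weights and 5 after cyclic loess. Chaperone and folding genes called lower numbered 3 without NDL replicate 3. Sensor and degradation genes called higher numbered 1 without NDL replicates 1 and 2 together. Sensor and degradation genes called lower numbered 0 without Met1 replicate 1, 2 or 3 or NDL replicate 1 or SSM2 replicate 1 or 2 or without NDL replicates 1 and 2 together or with the 6 arrays alone or with the replicate block and 2 without SSM2 replicate 3. Of 33 ribosomal protein genes 0 were higher and 0 lower in limma, with an unadjusted p under 0.05 in 2 and 0. Ribosomal protein genes called higher numbered 1 without SSM2 replicate 2 and 2 without NDL replicate 3.

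**Figure D3:**
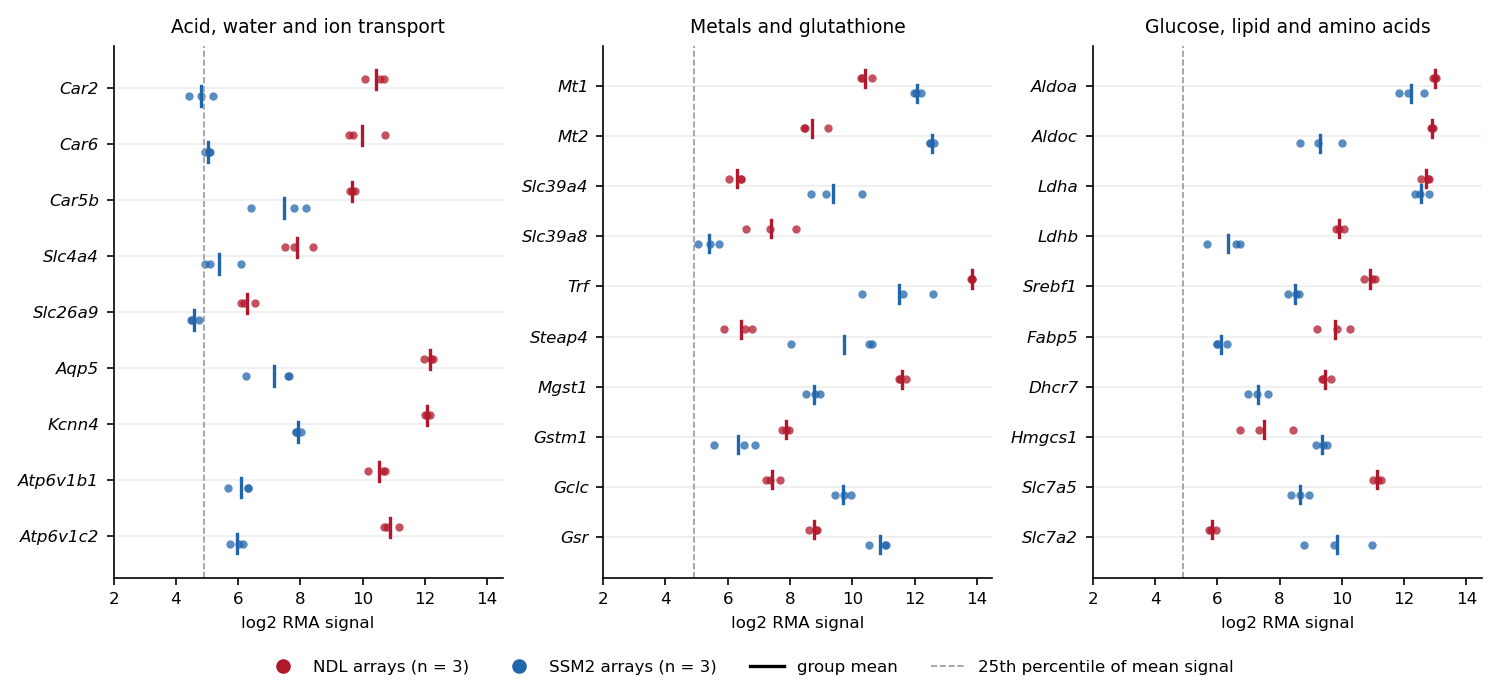
Log2 RMA signal (x axis) of genes of acid, water and ion transport, of metals and glutathione, and of glucose, lipid and amino acid metabolism (rows) in the 3 NDL and 3 SSM2 arrays, 1 point per array, with a bar at each group mean and a dashed line at the 25th percentile of mean signal. The left panel shows genes chosen from those called higher in NDL. Of all 42 ion and acid transport genes 12 were called higher and 5 lower. In the other panels Mt1, Mt2, Gclc, Gsr and Slc7a2 are higher in SSM2.

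Cell cycle genes gave no call between the lines. Of 43 cell cycle and replication genes 0 were called higher and 0 lower in limma, 1 and 4 had an unadjusted p under 0.05, and the median was -0.07. Mean signals of the list were 7.90, 7.91 and 8.24 in the NDL arrays and 7.83, 8.33 and 8.37 in the SSM2 arrays, so that SSM2 replicate 1 was the lowest of the 6. Pcna (0.08), Cdk1 (0.44) and Ccnb2 (0.16) are examples. Outside that list Ccnd1 was higher (above) and Ccnd2 lower (-1.23), with an adjusted p from 0.0545 to 0.154 without any 1 of Met1 replicates 1 and 2, NDL replicates 1 and 2 and SSM2 replicates 1 and 2. Cell cycle genes called higher numbered 1 without NDL replicate 3 or with the replicate block and 3 without SSM2 replicate 2. Cell cycle genes called lower numbered 2 without SSM2 replicate 1 and 8 without NDL replicate 3.

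The mean of interferon-induced genes ranged more within SSM2 than between the lines. The list mean was 7.26, 7.51 and 7.90 in the NDL arrays and 8.48, 7.78 and 7.02 in the SSM2 arrays. SSM2 replicate 1 was the highest and SSM2 replicate 3 the lowest array, with all NDL arrays between them. Of 61 members 1 was higher, Ifitm3 (0.88), and 1 lower, Ifitm1 (-1.21), restriction factors of virus entry, with adjusted p from 0.0535 to 0.0892 without any 1 of NDL replicates 1 and 2 and SSM2 replicates 1, 2 and 3 and from 0.0514 to 0.0863 without any 1 of Met1 replicate 2 and NDL replicates 1 and 2 respectively. Unadjusted p was under 0.05 in 4 higher and 8 lower members. Irf7 (0.85), Irf1 (-0.08) and Cxcl10 (-0.82) were not called. Interferon-induced genes called higher numbered 0 without NDL replicate 2 or SSM2 replicate 2 or 3 or without NDL replicates 1 and 2 together or with array weights and 4 without SSM2 replicate 1. Interferon-induced genes called lower numbered 0 without Met1 replicate 2 or NDL replicate 1 or 2 or without NDL replicates 1 and 2 together or with array weights, 2 without Met1 replicate 3, 3 with the filter at the median, 7 without NDL replicate 3 and 10 without SSM2 replicate 3. Among 23 genes of antigen presentation by MHC class I 1 was higher, Tapbpl (1.16), an editor of the peptides loaded, and 0 lower, with an unadjusted p under 0.05 in 3 and 1. B2m (0.14) was not called. MHC class I and processing genes called higher numbered 0 without NDL replicates 1 and 2 together and 2 without SSM2 replicate 1 or 3 or after cyclic loess or with equal medians. MHC class I and processing genes called lower numbered 1 without SSM2 replicate 3 or with equal medians or with the filter at the 25th percentile or with the filter at the median and 2 without NDL replicate 3. In MHC class II, H2-Eb1 was at 7.10, 7.24 and 6.43 in the NDL arrays and 11.33, 10.26 and 9.62 in the SSM2 arrays (-3.48), without overlap, and H2-Ea (1.10), its partner chain, moved the other way, while H2-Aa (0.31), H2-Ab1 (at 10.03, 10.88 and 10.25 in the NDL arrays and 12.11, 11.26 and 10.78 in the SSM2 arrays) and Cd74 (0.61) were not called.

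Of 38 T and NK cell genes 1 was higher, the checkpoint receptor Lag3 (0.77), and 0 lower, and list means were 5.36, 5.51 and 5.18 in the NDL arrays and 5.54, 5.21 and 4.97 in the SSM2 arrays. Cd3e (0.61), Cd8a (0.12) and Gzmb (0.46) were not called, and unadjusted p was under 0.05 in 5 higher and 1 lower members. T and NK cell genes called higher numbered 0 with the filter at the median, 2 without SSM2 replicate 1 or with equal medians or with the intensity trend and 7 without NDL replicate 3. Of 50 macrophage and dendritic cell genes 4 were higher and 3 lower, against 9.35% and 7.52% of all genes, while the list means overlapped, at 7.29, 7.65 and 7.10 in the NDL arrays and 7.96, 7.45 and 6.99 in the SSM2 arrays. The scavenger receptors of tissue macrophages, Cd163 and Mrc1, stood at 5.95, 6.09 and 6.08 in the NDL arrays and 9.01, 8.24 and 7.81 in the SSM2 arrays (-2.31) and at 6.72, 7.01 and 7.39 in the NDL arrays and 9.95, 9.01 and 8.56 in the SSM2 arrays (-2.14), with SSM2 replicate 1 highest in both. Arg1 (1.32), the arginase of alternatively activated macrophages, was higher, at 8.88, 8.53 and 8.58 in the NDL arrays and 7.15, 7.56 and 7.31 in the SSM2 arrays. Il10 (0.46), Cd14 (1.89) and the dendritic cell integrin Itgax (1.07) were higher with adjusted p from 0.0507 to 0.0642 without any 1 of NDL replicates 1 and 2 and SSM2 replicate 1, from 0.0602 to 0.129 without any 1 of Met1 replicates 1, 2 and 3 and NDL replicates 1 and 2 and from 0.0599 to 0.127 without any 1 of Met1 replicates 1, 2 and 3, NDL replicates 1 and 2 and SSM2 replicates 2 and 3 respectively. Fscn1 (-1.25), an actin bundler of mature dendritic cells, was lower. The general markers Adgre1 (-0.63), Csf1r (-0.08), Cd68 (0.11) and C1qa (0.17) were not called. Macrophage and dendritic cell genes called higher numbered 1 without NDL replicate 1 or 2 or without NDL replicates 1 and 2 together or with the 6 arrays alone, 2 without Met1 replicate 1, 2 or 3 or with array weights and 8 without NDL replicate 3. Macrophage and dendritic cell genes called lower numbered 1 without NDL replicates 1 and 2 together and 6 without SSM2 replicate 3.

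Neutrophil and mast cell genes were 3 higher and 1 lower of 38. Cd177, known on neutrophils, was at 11.39, 11.41 and 11.49 in the NDL arrays and 6.27, 6.03 and 5.99 in the SSM2 arrays (5.33), while S100a8 (-1.06), S100a9 (-1.39) and Csf3r (-0.97) were not called. S100a8 read 5.95, 6.28 and 4.82 in the NDL arrays and 7.54, 7.63 and 5.06 in the SSM2 arrays. The list mean was 5.45, 5.56 and 5.28 in the NDL arrays and 6.48, 5.85 and 5.09 in the SSM2 arrays, highest in SSM2 replicate 1 and lowest in SSM2 replicate 3. Padi4 (-2.42) was lower and Csf3 (1.81), the growth factor of granulocytes, higher. Neutrophil and mast cell genes called higher numbered 5 without NDL replicate 3. Neutrophil and mast cell genes called lower numbered 2 without NDL replicate 2 or after cyclic loess and 13 without SSM2 replicate 3. Il33, an alarmin released by epithelium and stroma, was at 6.63, 5.79 and 6.75 in the NDL arrays and 10.96, 11.26 and 9.92 in the SSM2 arrays (-4.33), without overlap. Jak2 (-3.66), the kinase that serves the prolactin and interferon gamma receptors, was lower, with NDL replicate 3 apart from the other NDL arrays, at 6.56, 5.73 and 8.66 in the NDL arrays and 10.82, 10.13 and 10.99 in the SSM2 arrays. Among checkpoint genes, Vsir (1.86), the gene of VISTA, and Ada (1.10), which breaks down adenosine, were higher, and Tnfsf9 (-1.18) and Lgals9 (-0.79) lower, with adjusted p from 0.058 to 0.134 without any 1 of Met1 replicates 1 and 2, NDL replicates 1, 2 and 3 and SSM2 replicates 2 and 3 and from 0.0553 to 0.0813 without any 1 of NDL replicate 1 and SSM2 replicates 2 and 3 respectively. Casp1 (2.47), the inflammasome caspase, was higher, with an adjusted p from 0.0504 to 0.104 without any 1 of Met1 replicates 2 and 3, NDL replicate 1 and SSM2 replicates 2 and 3, and Ly96 (-2.20), the endotoxin coreceptor, lower.

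Fibroblast and matrix members were 7 higher and 5 lower of 59, against 9.35% and 7.52% of all genes, and list means were 8.25, 8.13 and 8.21 in the NDL arrays and 8.74, 8.18 and 7.85 in the SSM2 arrays. The fibrillar collagens Col1a1 (0.73), Col1a2 (0.42) and Col3a1 (-0.09) were not called. Col9a1 and Col11a1 (2.94), collagens of cartilage, and Col4a5 (1.31) and Col4a6 (1.75), of basement membrane, were higher, Col9a1 at 10.45, 10.61 and 11.06 in the NDL arrays and 7.02, 6.74 and 6.86 in the SSM2 arrays (3.84). Fn1, fibronectin, read 11.04, 11.06 and 10.48 in the NDL arrays and 13.66, 13.40 and 12.67 in the SSM2 arrays, lower in each NDL array. Dcn, the decorin of fibroblasts, stood at 8.24, 8.06 and 9.02 in the NDL arrays and 12.81, 12.54 and 10.10 in the SSM2 arrays, with SSM2 replicate 3 between the groups (-3.38), and its adjusted p was from 0.0573 to 0.0637 without any 1 of NDL replicates 1 and 2 and SSM2 replicate 2. The hemidesmosomal collagen Col17a1 (-1.85) and the laminin chains Lama3 (-1.14) and Lamb3 (-1.64) of epithelial basement membrane were lower, Lamb3 with an adjusted p of 0.0625 without NDL replicate 1, while Lama4 (1.54) and Lamb2 (0.98), laminin chains of vessels and muscle, were higher. The integrin Itga8 was at 9.78, 9.51 and 10.50 in the NDL arrays and 5.73, 5.93 and 5.33 in the SSM2 arrays (4.27), and Itga9 differed by 1.90, while Itgav (-0.88) was lower. The matrix enzymes Loxl3 (1.65), which crosslinks collagen, and Plod1 (1.69) and Plod2 (1.61), which hydroxylate its lysines, were higher, and the procollagen enhancers Pcolce (-2.15) and Pcolce2 (-1.44) lower. The integrin Itgb3 (0.83) was higher, and the laminin chain Lama5 (-1.08) and the syndecans Sdc1 (-0.67) and Sdc2 (-1.004) were lower. The calls of Plod2, Pcolce2, Itgb3, Lama5 and Sdc1 each ended without 1 or more of the 9 arrays, with an adjusted p from 0.0502 to 0.131 there. Fibroblast and matrix genes called lower numbered 3 without NDL replicate 1 or 2 or SSM2 replicate 2 or without NDL replicates 1 and 2 together and 9 without SSM2 replicate 3.

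Proteases of the matrix were lower in 8 of 36 members and higher in 2. Mmp14, the membrane collagenase, stood at 9.36, 9.47 and 9.27 in the NDL arrays and 11.56, 11.33 and 10.23 in the SSM2 arrays (-1.67), without overlap. The sheddase Adam10 (-2.35), the cathepsins Ctsl (-2.19) and Ctsz (-1.26), and the inhibitor Timp1 (-1.60), with an adjusted p from 0.0801 to 0.0846 without any 1 of NDL replicate 1 and SSM2 replicates 1 and 2, were lower. Adamts1 (-1.54), Adamts9 (-0.85) and the cathepsin Ctse (-3.21) were lower too, and Adam12 (0.90) and the cystatin Cst6 (0.65) higher. The calls of these 5 each ended without 1 or more of the 9 arrays, with an adjusted p from 0.0519 to 0.117 there. Protease and inhibitor genes called higher numbered 0 without NDL replicate 1 or 2 or SSM2 replicate 1 or 3 or without NDL replicates 1 and 2 together or with array weights and 1 without Met1 replicate 2 or SSM2 replicate 2 or with the 6 arrays alone or with the replicate block or after cyclic loess or with the filter at the median. Protease and inhibitor genes called lower numbered 1 without NDL replicates 1 and 2 together and 5 without SSM2 replicate 2 or with the 6 arrays alone. Of 14 coagulation and plasmin genes 5 were lower and 0 higher. Plaur (-1.89), the urokinase receptor, Plau (-1.51), urokinase, and Anxa2 (-0.90) and S100a10 (-0.72), which gather plasminogen at the cell surface, were lower, as was the transglutaminase F13a1 (-2.61). Plau had an adjusted p from 0.0625 to 0.0739 without any 1 of NDL replicates 1 and 2. Coagulation and plasmin genes called lower numbered 3 with array weights.

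Endothelial genes were lower in 5 of 33 members and higher in 1, with list means of 6.56, 6.60 and 6.51 in the NDL arrays and 7.12, 6.83 and 6.70 in the SSM2 arrays. The shares over all genes were 7.52% lower and 9.35% higher. Pecam1 was at 7.30, 7.25 and 7.02 in the NDL arrays and 8.16, 7.98 and 7.80 in the SSM2 arrays (-0.79), and Vwf differed by -0.87, but Cdh5 (-0.34), Eng (-0.02) and Flt1 (0.12) were not called. Emcn (-1.34), Angpt2 (-1.28) and the lymphatic marker Lyve1 (-1.77) were lower and Sox7 (above) was higher, and the calls of these 4 each ended without 1 or more of NDL replicates 1 and 2 and SSM2 replicates 1 and 2, with an adjusted p from 0.0508 to 0.0712 there. Endothelial and pericyte genes called higher numbered 0 without NDL replicate 1 or 2 or SSM2 replicate 2 or without NDL replicates 1 and 2 together or with the 6 arrays alone or with the filter at the median and 2 without NDL replicate 3 or with the replicate block. Endothelial and pericyte genes called lower numbered 2 without NDL replicates 1 and 2 together, 3 without NDL replicate 1 or SSM2 replicate 1 or 2 and 10 without SSM2 replicate 3. Of 15 adipocyte genes 1 was higher, Pnpla2 (above), and 1 lower, Sncg (-2.01), with an adjusted p of 0.0509 without NDL replicate 1. Of 19 muscle, nerve and blood genes 4 were higher, myoglobin, Mb (1.53), Actn3 (0.45), S100b (1.11) and Mbp (0.53), and 0 lower. The calls of Actn3 and Mbp each ended without 1 or more of Met1 replicates 1 and 2, NDL replicates 1 and 2 and SSM2 replicates 1, 2 and 3, with an adjusted p from 0.0523 to 0.0995 there. Adipocyte genes called higher numbered 0 without NDL replicates 1 and 2 together. Adipocyte genes called lower numbered 0 without NDL replicate 1. Muscle, nerve and blood genes called higher numbered 1 without NDL replicates 1 and 2 together and 2 without NDL replicate 1 or 2 or SSM2 replicate 1 or 2 or with the 6 arrays alone or with the replicate block or with the filter at the median. Adipocyte genes such as Fabp4 (-0.58) and Plin1 (-0.05) and the muscle genes Acta1 (0.19) and Ckm (0.24) were not called.

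**Figure D4:**
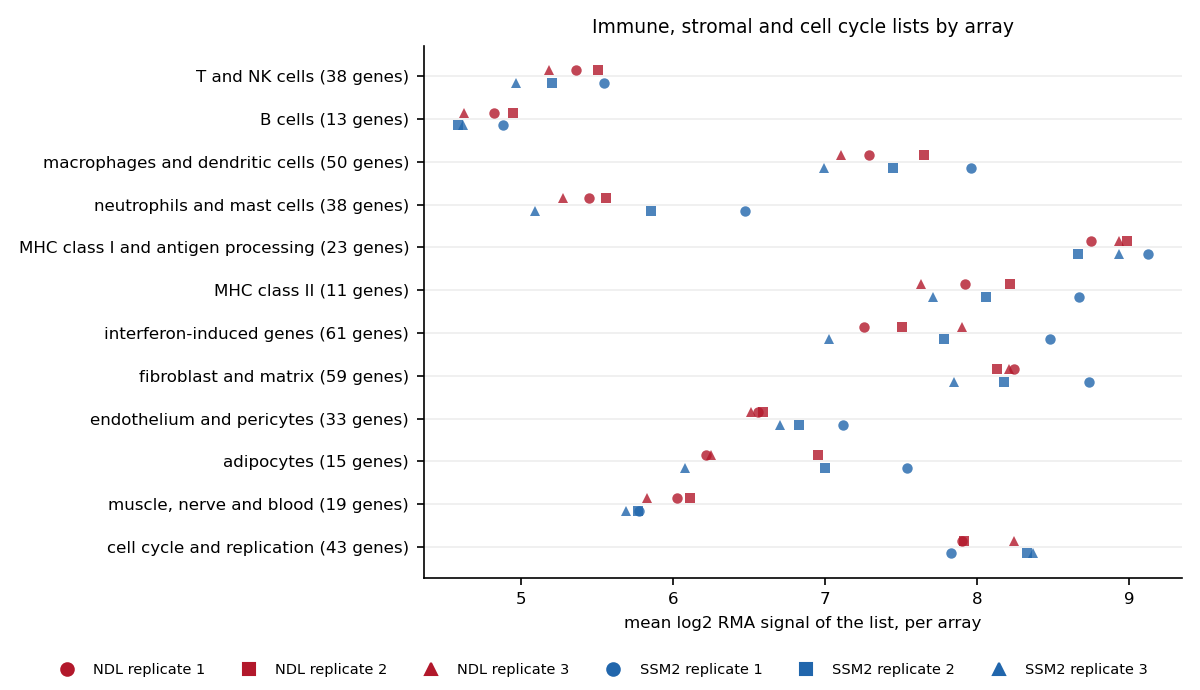
Mean log2 RMA signal (x axis) of the members of 12 gene lists (rows, with the number of genes measured) in each NDL and SSM2 array, with a marker shape for each replicate. The lines overlap for 10 of the lists, and the endothelial and the muscle, nerve and blood lists do not overlap. SSM2 replicate 1 is the highest array and SSM2 replicate 3 the lowest for macrophage, neutrophil, interferon-induced, T and NK cell, fibroblast and matrix, and adipocyte genes.

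Calls were not spread evenly over the chromosomes. Chromosome 13 held 732 of the measured genes, and 167 of them (22.8%) were lower in NDL against 15 (2.05%) higher, where all genes gave 7.52% and 9.35%. Among genes above the median of mean signal, 285 of 339 on chromosome 13 had a difference below 0, their median was -0.689, and 43.4% were lower, against a median of -0.056 and 12.7% over all 9956 such genes. The tilt ran along the whole chromosome. These 339 genes were put in order and divided into 10 segments of near equal gene number. The median of each segment lay below 0, from -0.30 in the second to -1.12 in the first. Array by array, each gene was set against its mean over the 6 arrays. The array's median over all 9956 genes above median signal was then subtracted. The medians of the chromosome 13 genes were -0.31, -0.503 and -0.151 in NDL and 0.264, 0.321 and 0.361 in SSM2. NDL replicate 3 was the nearest to SSM2, and no array crossed over. Set against Met1, the medians were -0.562 for NDL and 0.135 for SSM2, values that share the Met1 arrays. Chromosome 13 did not stand alone there: NDL minus Met1 was -0.677 on chromosome 14, -0.544 on 3 and -0.467 on 4. SSM2 minus Met1 was -0.298, -0.385 and -0.085 on these. On chromosomes 7 and 19 NDL minus Met1 was 0.214 and 0.229, and over all such genes -0.099. The count of lower genes on chromosome 13, 167, was 84 without NDL replicate 1, 106 without NDL replicate 2, 79 with the 6 arrays alone and 42 of 363 lower genes in all without NDL replicates 1 and 2.

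Genes of many functions lay among the lower ones on chromosome 13. Gcnt2, which branches surface glycans, was at 6.43, 6.41 and 6.24 in the NDL arrays and 8.72, 9.18 and 9.27 in the SSM2 arrays (-2.70), and Klf6, a zinc finger factor, at 7.52, 7.06 and 8.19 in the NDL arrays and 9.94, 9.15 and 9.79 in the SSM2 arrays (-2.04). Both were lower in every NDL array. Map1b (-2.46), of the cytoskeleton, Cert1 (-2.33), which carries ceramide, Msx2 (-1.87), a homeobox factor, and Il6st (-1.51), the shared receptor chain of the interleukin 6 family, were lower too. Several of the lower genes described above sit there, among them Fst, Hmgcs1, Ocln, Smad5, Sdha, Ndufs4, Ctsl and F13a1. They were picked after their values were seen. Of the 53 list members on chromosome 13, 13 were lower, 3 higher and 37 not called. The muscarinic receptor Chrm3 (4.30), Wnk2 (2.63) and Id4 (1.67) on the same chromosome were higher in NDL.

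Between NDL and SSM2 the other chromosomes leaned less when each was taken as a whole. On chromosome 4, 17.5% of all measured genes were lower and 5.46% higher, with a median difference of 0.02. Among its genes above median signal, the medians by segment went from -0.89 in the first to -0.01 in the last. The count of lower genes on chromosome 4, 202, was 97 without NDL replicate 1, 133 without SSM2 replicate 2, 99 with the 6 arrays alone and 45 without NDL replicates 1 and 2. Chromosome 14 had 12.3% lower, 86 genes. Leaving out NDL replicates 1, 2 and 3 in turn gave 31, 45 and 146, leaving out SSM2 replicate 1 gave 46 and SSM2 replicate 2 gave 46, the 6 arrays alone gave 35, and leaving out both NDL replicates 1 and 2 gave 15. The lean was to higher values on chromosome 7, with 12.7% higher and 2.36% lower, and on chromosome 12, with 14.6% and 2.61%. Among genes above median signal, every segment of chromosome 7 had a median above 0. On chromosome 12 the medians by segment of such genes lay on both sides of 0. The higher genes on chromosomes 7 and 12 numbered 220 and 95, 478 and 162 without NDL replicate 3, 133 and 58 with the 6 arrays alone, 86 and 46 without NDL replicates 1 and 2, and 54 on chromosome 12 without NDL replicate 1. Parts of a chromosome could lean as far where the whole did not. On chromosome 15, segments 1, 2 and 3 had medians of -0.55, -0.54 and -0.87, and segment 9 had 0.36. On chromosome 17, segments 9 and 10 had -0.42 and -0.61. These segments were picked after their values were seen. DNA copy number was not analysed here, and these shares and medians are a description with no test of their own.

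**Figure D5:**
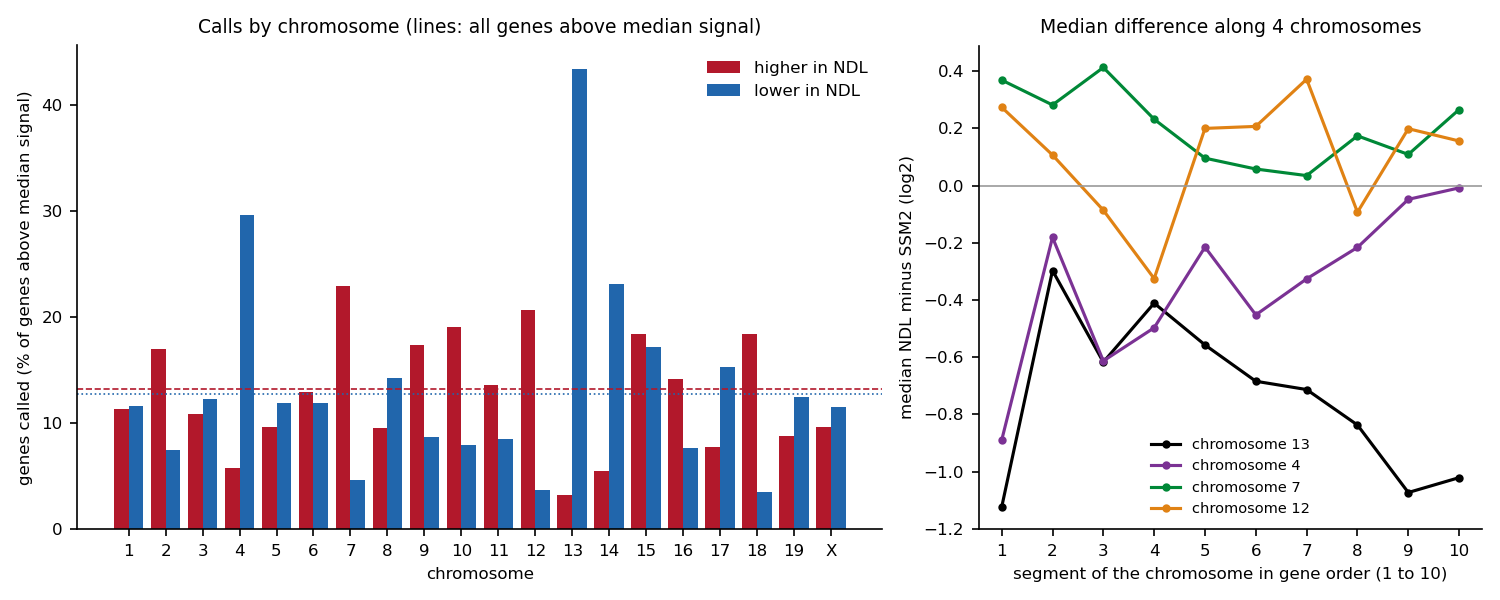
Left, percent of genes above median signal called higher or lower in NDL on each chromosome (y axis, bars from 0), with lines at the percent over all such genes, and right, median log2 difference, NDL minus SSM2 (y axis), in each of 10 segments of chromosomes 13, 4, 7 and 12 in gene order (x axis). Both panels use genes above the median of mean signal. Chromosome 13 has the tallest bar, 43.4% lower, and its 10 medians all lie below 0.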

How the data were processed

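The authors deposited log2 signals from RMA in oligo 1.40.2, per the submitters' processing notes. RMA corrects background, sets arrays to a common distribution and summarises probes. RNA (100 ng) came from frozen pieces through an FFPE kit, per the labels' protocols. The genome build is not given in the sources used here. Of 35556 features 21789 carried 1 gene symbol (21698 matched to RefSeq GRCm38.p6 by gene ID, 91 kept their own), and each of 19938 genes was represented by its feature of highest mean over the 9 arrays, with no filter on signal. Arrays have no read depth, and their number limits the precision.

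The log2 values were fitted in limma 3.58.1 (R 4.3.3) with lmFit and eBayes, using all 9 arrays (6 residual degrees of freedom and 2.42 prior ones), and NDL minus SSM2 was tested on both sides, adjusted by Benjamini-Hochberg. Errors of differences are standard errors of the model. In a test on simulated data, 60 of 100 genes changed by 1 log2 unit and 85 of 100 changed by 2 were called, with 8 unchanged genes. It changed 200 of 19938 genes and gave every array the same spread. The data had more calls and unequal arrays, so these shares need not hold there. Members and gene lists (59 lists, 1696 of 1813 entries measured) were chosen with earlier results of these data known. Lists and chromosomes are described by counts and medians, with no set test. Genes named were key members of a list, the 6 called members with the largest difference per role and direction, every called member of a role with 10 or fewer calls, the 30 largest differences in each direction among genes without overlap (not counting small RNAs, receptor segments and genes without a name), and up to 3 members per role of high signal that were not called. Foxi1, the V-ATPase list, the genes named on chromosome 13 and further members not called were picked after their values were seen.

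The settings tried instead were array weights, equal medians, cyclic loess, robust fitting with an intensity trend, averaging a gene's features, keeping genes above the median or above the 25th percentile of signal, blocking on the replicate number, dropping Met1, and dropping each array in turn. Leaving out NDL replicates 1 and 2 was added after the data were seen. Figures were drawn with matplotlib 3.10.9.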

Additional observations from a re-analysis of the deposited data

How the results depend on the processing

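Of 3364 genes called, 1865 higher and 1499 lower, leaving out 1 array gave between 1873 and 7018 in all, 1195 and 3996 higher and 678 and 3022 lower. The fit of the 6 arrays alone gave 1755 in all, 1080 higher and 675 lower, and that without NDL replicates 1 and 2 gave 1190, 827 and 363. Lower genes on chromosome 13 numbered from 84 to 238 with 1 array left out, 79 with the 6 arrays alone and 42 without NDL replicates 1 and 2, against 167. Filters, cyclic loess, equal medians, array weights, intensity trend and the mean of features kept these counts within 1.5 times. With the replicate number as a block the calls were 2779 (1463 higher, 1316 lower). The deviations of same-numbered arrays from their line correlated at -0.13, 0.29 and 0.12, so the numbers were not taken as pairs.

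Of the 436 called genes named, 295 kept their call whichever array was left out. The call ended for 117 with the 6 arrays alone, 237 without NDL replicates 1 and 2, 55 under the block, 16 under cyclic loess, 88 with array weights and 19 with the intensity trend, and none changed direction. The cause of these moves was not tested. Signals near background limit the size of differences for dim genes, and 3 arrays per line limit all of them.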

Other observations

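Developmental and guidance genes gave a further set of differences. HOX genes, which set position along the body axis, were higher in 8 of 37 members and lower in 0. All genes gave 9.35% higher and 7.52% lower. The higher ones were Hoxa5 (1.30), Hoxa7 (0.78), Hoxa6 (0.66), Hoxb2 (0.94), Hoxb4 (0.70), Hoxa3 (0.68), Hoxa4 (0.41) and Hoxc13 (0.46). List means were 5.58, 5.59 and 5.32 in the NDL arrays and 5.24, 5.17 and 5.22 in the SSM2 arrays. In 8 of the 37 members both group means lay under the 25th percentile of mean signal, where differences have an uncertain size. The calls of Hoxa3, Hoxa4 and Hoxc13 each ended without 1 or more of Met1 replicates 1, 2 and 3, NDL replicates 1 and 2 and SSM2 replicates 1, 2 and 3, with an adjusted p from 0.0577 to 0.142 there. Hoxa5 stood at 6.95, 6.51 and 7.73 in the NDL arrays and 5.80, 5.81 and 5.69 in the SSM2 arrays, with NDL replicate 3 highest. HOX genes called higher numbered 0 with the filter at the median, 1 without NDL replicates 1 and 2 together, 3 with the 6 arrays alone, 5 without NDL replicate 1 and 17 without NDL replicate 3. Guidance genes were higher in 11 of 49 members and lower in 5. The Eph receptors Ephb4 (1.36) and Ephb3 (1.07) were higher and the ligand Efnb1 (-1.12), which binds both, was lower. The semaphorins Sema5a (2.59), Sema6a (1.54), Sema3b (1.48) and Sema7a (1.12) were higher, and Sema3c (-1.64) and Nrp1 (-1.44), a semaphorin receptor, lower. The Eph receptor Ephb1 (0.56), the netrin Ntn1 (0.67) and its receptor Neo1 (0.82) were higher, beside Epha2 and Epha4 named above, and Efna1 (-0.47) and Slit2 (-2.35) lower. The calls of these 5 each ended without 1 or more of Met1 replicates 1, 2 and 3, NDL replicates 1 and 2 and SSM2 replicates 1, 2 and 3, with an adjusted p from 0.0516 to 0.142 there. Guidance genes called higher numbered 4 without NDL replicates 1 and 2 together. Guidance genes called lower numbered 1 without NDL replicates 1 and 2 together and 3 without NDL replicate 2 or SSM2 replicate 1.

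Among the largest differences outside the pathways described, the heme and choline transporter Flvcr2 was at 10.23, 10.05 and 10.63 in the NDL arrays and 5.72, 5.27 and 5.06 in the SSM2 arrays, Hhipl2 at 10.31, 10.18 and 10.21 in the NDL arrays and 5.11, 5.09 and 5.28 in the SSM2 arrays and the kinase gene Hunk, known from mammary tumours, at 10.48, 10.33 and 10.23 in the NDL arrays and 6.23, 5.86 and 5.81 in the SSM2 arrays. No arrays overlapped. Alkal2 (4.44), a ligand of the receptor kinase ALK, the peptidoglycan binder Pglyrp1 (4.30), the intracellular chloride channel gene Clic6 (4.52) and the syntrophin Sntb1 (4.26) were higher. So were Tc2n, at 9.28, 8.71 and 10.64 in the NDL arrays and 3.999, 3.28 and 3.29 in the SSM2 arrays (6.02), the sialyltransferase St8sia6 (4.32) and the Rac regulator Chn2 (4.23). Lower were Rgs2 (-3.91), which damps G protein signals, the fatty acid receptor Ffar4 (-4.13), the annexin Anxa8 (-4.30), the acyl-CoA synthetase Acsbg1 (-4.04), the monooxygenase Fmo2 (-3.89) and the autoantigen Ro60, at 6.94, 6.60 and 8.01 in the NDL arrays and 11.06, 10.37 and 11.85 in the SSM2 arrays (-3.91), with NDL replicate 3 nearest to SSM2. Capsl, a calcium-binding protein gene listed with motile cilia, was at 4.92, 4.22 and 4.82 in the NDL arrays and 9.95, 8.91 and 10.93 in the SSM2 arrays (-5.28), its NDL arrays near background. The phosphatase gene Mtmr7 (-4.51), Clip4 (-4.17), Pwwp3b (-4.11), the cochaperone Dnajc12 (-3.81) and Tlcd4 (-3.67) were lower, Pwwp3b with an adjusted p from 0.0556 to 0.0642 without any 1 of NDL replicates 1 and 2 and SSM2 replicate 2. The retinol carrier Rbp4 read 4.92, 5.32 and 4.98 in the NDL arrays and 10.38, 10.72 and 7.10 in the SSM2 arrays (-4.33), SSM2 replicate 3 standing apart from the other SSM2 arrays, while Rdh11 (0.88), a retinal reductase, was higher. Of 6 retinoid receptor genes 2 were higher, Rarb (0.88) and Rxra (0.81), and 0 lower, and Rara (0.41) and Rarg (0.15) were not called. The calls of Rarb and Rxra each ended without 1 or more of NDL replicate 1 and SSM2 replicates 2 and 3, with an adjusted p from 0.0522 to 0.0896 there. Retinoid receptor genes called higher numbered 0 without NDL replicate 1 or without NDL replicates 1 and 2 together and 1 without SSM2 replicate 2 or 3 or with the 6 arrays alone or after cyclic loess or with the filter at the median or with array weights.

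Of 56 cilia genes 6 were higher, Rsph1 (0.59) and Zmynd10 (0.66) of motile cilia, the hedgehog inhibitor Sufu (0.76), Bbs1 (0.50), Bbs7 (0.89) and Tulp3 (0.58), and 3 lower, Capsl (above), Ift57 (-1.24) and the hedgehog effector Gli3 (-0.64). All genes gave 9.35% higher and 7.52% lower, beside which the counts of this paragraph stand. The calls of Bbs1, Bbs7, Tulp3, Ift57 and Gli3 each ended without 1 or more of Met1 replicates 1, 2 and 3, NDL replicates 1 and 2 and SSM2 replicates 1, 2 and 3, with an adjusted p from 0.0509 to 0.116 there. Cilia genes called higher numbered 2 without NDL replicates 1 and 2 together or with the 6 arrays alone, 3 without SSM2 replicate 2 or with the filter at the median and 14 without NDL replicate 3. Cilia genes called lower numbered 1 without NDL replicate 1 or with the 6 arrays alone or with the filter at the median and 10 without NDL replicate 3. Of 30 lysosome and autophagy genes 5 were higher, Atp6v1b1 (above), the galactosidase Glb1 (1.65), the cholesterol exporter Npc1 (0.82), the calcium channel Mcoln1 (0.41) and the regulator Tfeb (0.62), and 3 lower, Ctsl (above), the glucuronidase Gusb (-1.19) and Map1lc3b (-0.77). The calls of Mcoln1, Tfeb and Map1lc3b each ended without 1 or more of Met1 replicates 1, 2 and 3, NDL replicates 1 and 2 and SSM2 replicates 1, 2 and 3, with an adjusted p from 0.0501 to 0.0875 there. Lysosome and autophagy genes called higher numbered 2 without NDL replicates 1 and 2 together or with the 6 arrays alone and 3 without Met1 replicate 1 or NDL replicate 1 or SSM2 replicate 2 or 3. Lysosome and autophagy genes called lower numbered 1 without NDL replicates 1 and 2 together and 5 without NDL replicate 3. Of 31 proteasome genes Psmc4 (0.80) was higher and Psmb2 (-0.51) lower, with an adjusted p from 0.051 to 0.144 without any 1 of Met1 replicates 1 and 2, NDL replicates 1 and 2 and SSM2 replicates 1, 2 and 3. Proteasome genes called higher numbered 0 without NDL replicates 1 and 2 together and 2 without NDL replicate 3 or SSM2 replicate 2. Proteasome genes called lower numbered 0 without Met1 replicate 1 or 2 or NDL replicate 1 or 2 or SSM2 replicate 2 or 3 or with the 6 arrays alone or with the replicate block or with equal medians or with the intensity trend, 2 with the filter at the 25th percentile or with the filter at the median or with array weights and 5 without NDL replicate 3. The p53 targets Ei24 (0.89), Bbc3 (0.60), which promotes apoptosis, and Phlda3 (0.54) were higher and Btg2 (-1.07) lower, of 15 measured. The calls of Bbc3, Phlda3 and Btg2 each ended without 1 or more of Met1 replicates 1, 2 and 3, NDL replicates 1 and 2 and SSM2 replicates 1, 2 and 3, with an adjusted p from 0.0504 to 0.133 there. Targets of p53 called higher numbered 1 without NDL replicate 1 or 2 or SSM2 replicate 2 or 3 or without NDL replicates 1 and 2 together or with the 6 arrays alone or with the replicate block. Targets of p53 called lower numbered 0 without Met1 replicate 1 or 2 or NDL replicate 1 or SSM2 replicate 1 or without NDL replicates 1 and 2 together or with the 6 arrays alone, 2 without SSM2 replicate 3 or with the replicate block or with equal medians or with the intensity trend or with array weights, 3 with the filter at the 25th percentile or with the filter at the median and 4 without NDL replicate 3. Acot1 (2.11), a thioesterase, was the called gene among 20 of fatty acid oxidation. Fatty acid oxidation genes called higher numbered 0 without NDL replicates 1 and 2 together, 2 without SSM2 replicate 1, 2 or 3 or with the replicate block and 3 without NDL replicate 3 or after cyclic loess or with equal medians or with the filter at the 25th percentile or with the filter at the median. Fatty acid oxidation genes called lower numbered 1 without NDL replicate 3 or after cyclic loess and 2 without SSM2 replicate 1 or 3. Of complement genes Cd59a (2.57), which blocks the lytic pore, was higher and C1s1 (-2.59) lower, of 15. Complement genes called lower numbered 0 without NDL replicates 1 and 2 together and 2 without SSM2 replicate 3. Of single immune genes, the B cell coactivator Pou2af1 (1.12), the chemokine Cxcl12 (1.08) and the acute phase gene Saa2 (1.42) were higher and the adhesion gene Icam1 (-1.12) lower. The calls of these 4 each ended without 1 or more of the 9 arrays, with an adjusted p from 0.0537 to 0.158 there.

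Further key members of the lists were not called. In growth control these were Grb7 (-0.11), Mki67 (0.04), Top2a (-1.21), Cdkn2a (-1.63), Cdkn2b (-0.66) and Rb1 (0.37). In metabolism they were Acaca (-0.20), Slc2a1 (-0.46), Vegfa (-1.26) and Nqo1 (-0.10). Of interferon response and antigen presentation they were Stat2 (-0.49), Irf9 (0.35), Ifnar1 (-0.28), Ifngr1 (-0.77), Tap1 (-0.21), Tap2 (0.37), Psmb8 (-0.23), Ciita (0.20) and Cd274 (-1.18), and of immune cells and their signals Cd3d (0.40), Cd4 (0.28), Gzma (0.21), Ms4a1 (-0.18), Nos2 (-0.43), Csf1 (0.66), Csf2 (0.15), Tlr3 (0.06) and Tlr4 (-1.39). Pdgfra (-0.99) of fibroblasts, Adipoq (-1.10) of adipocytes and Foxj1 (0.01) of ciliated cells were not called either. A gene that was not called is not shown to be alike in the 2 lines.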
